A study of Mus musculus with 36 samples.

Results

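Mesenchymal stem cells (MSCs) grown from the bone marrow of the femur (fBM-MSCs) were compared with MSCs grown from the bone marrow of the vertebrae (vBM-MSCs) of the same kind of mouse. The members were the RNA-seq libraries labelled as femur or vertebral MSCs: 3 fBM-MSC and 2 vBM-MSC libraries, 5 of the 11 RNA-seq libraries analysed here. Each library listed 24411 genes, of which 12509 passed the filter on low counts and were tested. 1 pooled list of accessible regions per tissue, from ATAC-seq, stood beside them. The third vBM-MSC RNA library was not analysed here, whereas the pooled vBM-MSC region list holds reads of all 3 replicates.

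The donors were 8-week-old C57BL6/J mice, and the labels give no other allele and no treatment. Marrow was released by crushing the bone, and adherent cells were expanded for a few passages on collagen I in MesenCult medium with a Rock inhibitor, so each library describes cultured adherent cells rather than MSCs sorted from fresh marrow. Adipose tissue and lung MSCs (A-MSCs and P-MSCs) completed the study. Cells of the 4 tissues came from the same mice, but the labels do not say which libraries share a mouse. Total expected counts were 19569650, 31805844 and 37180657 in the fBM-MSC libraries and 30047590 and 35831719 in the vBM-MSC libraries. Xist was at 0 in all 5 libraries and the Y-linked Ddx3y at 21.7 to 38.8 TPM, so the sex of the donors did not separate the groups.

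The transcripts of the MSC surface proteins CD29 (Itgb1), CD44 (Cd44), Sca-1 (Ly6a) and CD106 (Vcam1) were present in all 5 libraries. Ly6a was at 256, 316 and 480.3 TPM in fBM-MSCs and 805 and 571 in vBM-MSCs (log2 fold change -0.95, SE 0.25, edgeR adjusted p = 0.03), and Vcam1 at 29.3, 40.03 and 46.9 TPM in fBM-MSCs and 71.8 and 53.5 in vBM-MSCs. The endothelial Pecam1 (CD31) and the leukocyte Ptprc (CD45) were at or near 0, from 0 to 0.31 TPM. Cd34, which MSCs of many definitions lack, was at 79.2, 72.7 and 10.2 TPM in fBM-MSCs and 7.33 and 7.46 in vBM-MSCs, and was higher in fBM-MSCs (log2 fold change 2.91, SE 0.72, edgeR adjusted p = 0.0226). fBM-MSC replicate 3 was near the vBM-MSC level. Of 14 surface genes, Cd34 was higher in fBM-MSCs and Ly6a, Mcam, Pdgfra and Pdgfrb in vBM-MSCs. Over all tested genes, 5.24% were higher in fBM-MSCs and 7.56% in vBM-MSCs. The 4 surface gene calls toward vBM-MSCs numbered 1 on the 5 bone marrow libraries. Cd34 and Ly6a missed the threshold without vBM-MSC replicate 1 (edgeR adjusted p = 0.127 to 0.292), as did Cd34 without vBM-MSC replicate 2 (edgeR adjusted p = 0.0825). Ly6a missed the threshold without fBM-MSC replicate 1 (edgeR adjusted p = 0.0689), as did Cd34 and Ly6a without fBM-MSC replicate 2 (edgeR adjusted p = 0.056 to 0.0911). Cd34 missed the threshold with a weight per tissue (limma adjusted p = 0.249), and Cd34 and Ly6a in the 5 bone marrow libraries (edgeR adjusted p = 0.118 to 0.165).

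The femur is a limb bone that forms from lateral plate mesoderm, and the vertebrae are axial bones that form from the sclerotome of the somites. Embryonic mesenchyme records where it lies through transcription factors that can stay on in its adult descendants. Hox genes lie in 4 clusters, HoxA to HoxD, and are numbered by paralogue group: low numbers are used toward the head, and groups 9 to 13 toward the tail and along the limbs. Pitx1 and Tbx4 mark the hindlimb, Shox2 the proximal limb skeleton, and Pax1, Zic and Foxc factors the somites and sclerotome.

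In the plots and sentences that follow, a level is given in TPM, a scale corrected for transcript length and library total, in the order of fBM-MSC replicates 1, 2 and 3 and of vBM-MSC replicates 1 and 2. A log2 fold change is fBM-MSCs over vBM-MSCs on expected counts, so negative values are higher in vBM-MSCs. A gene was called at a Benjamini-Hochberg adjusted p under 0.05 in the quasi-likelihood test of edgeR, which took the spread from all 11 libraries.

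Of the 12509 genes, 1601 (12.8%) were called. 655 genes (5.24%) were higher in fBM-MSCs and 946 (7.56%) in vBM-MSCs, and at least 2-fold differences made up 346 (2.77%) and 476 (3.81%) of the genes tested. TPM values of the groups did not overlap for 637 of the 655 and 945 of the 946 called genes. Of all tested genes, 15.4% were without overlap and higher in fBM-MSCs and 22.9% in vBM-MSCs. Lack of overlap thus came with nearly every call, and is no separate support for the called genes below. The median fold of a called gene was 2.06 in fBM-MSCs and 2.03 in vBM-MSCs. The spread between replicates was larger in fBM-MSCs and vBM-MSCs (biological coefficient of variation 33.3% and 36.6%) than in A-MSCs (25.8%) and P-MSCs (15.6%). Where limma gave each tissue its own weight, 841 genes were called (6.72%; 284 or 2.27% higher in fBM-MSCs and 557 or 4.45% in vBM-MSCs), of which 793 were also called by edgeR. On the 5 bone marrow libraries alone, edgeR called 305 of 12051 genes (2.53%; 99 or 0.822% and 206 or 1.71%), 297 of them shared with the fit of all libraries. vBM-MSC replicate 1 stood farther from fBM-MSCs than replicate 2 (Pearson r across genes on log2(TPM + 1) 0.964 to 0.974 against 0.975 to 0.981), and the count of calls was 610 without it. For 547 (83.5%) of the genes higher in fBM-MSCs, vBM-MSC replicate 2 was over vBM-MSC replicate 1, and for 489 (51.7%) of those higher in vBM-MSCs it was under it.

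**Figure D1:**
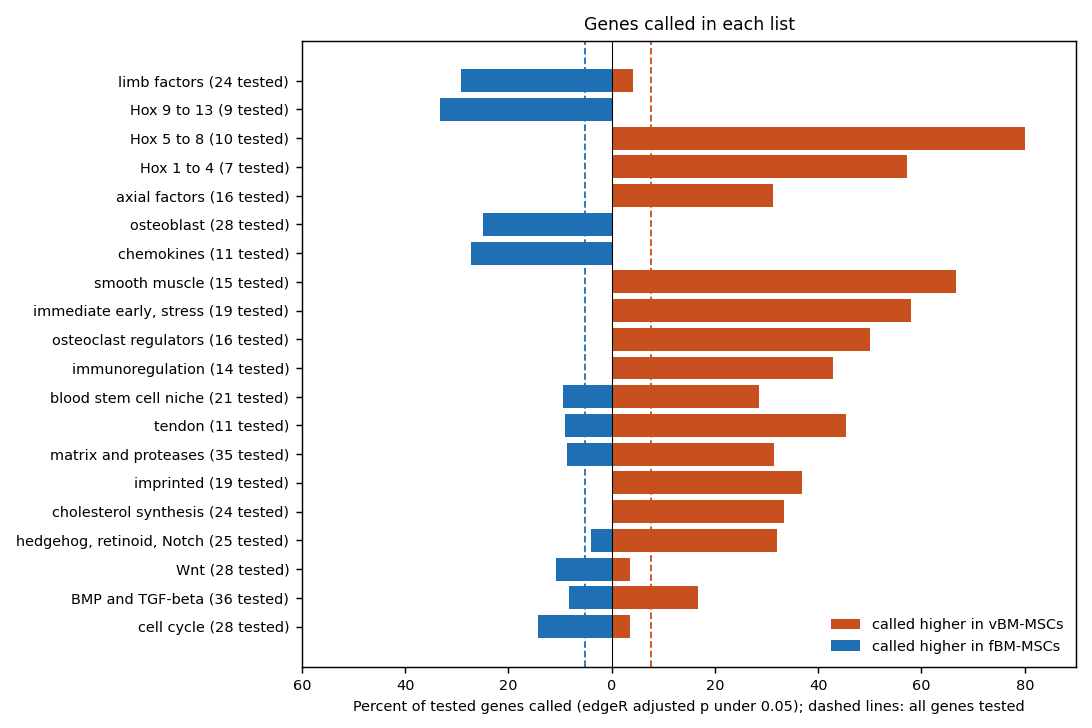
Share of the tested genes of each list (y axis, number tested in brackets) called by edgeR at an adjusted p under 0.05, in percent (x axis), to the left for higher in fBM-MSCs and to the right for higher in vBM-MSCs. Dashed lines are the shares over all 12509 genes, 5.24% and 7.56%. Hox 5 to 8 and smooth muscle genes reach farthest to the right, and limb factors, Hox 9 to 13, osteoblast genes and chemokines lie to the left.

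Limb transcription factors had more calls toward the femoral side than the background. Of 24 tested, 7 were higher in fBM-MSCs and 1 in vBM-MSCs, where 5.24% and 7.56% of all genes were. These shares are the background of every list count below. With a weight per tissue the background was 2.27% and 4.45%, and in the 5 bone marrow libraries 0.822% and 1.71%. With a weight per tissue limma called none of the 7, and in the 5 bone marrow libraries alone edgeR called 2 (0.822% of all genes tested there). The 7 limb calls toward fBM-MSCs numbered 4 without vBM-MSC replicate 1, against 11 without vBM-MSC replicate 2. 3 of the 7 were at 0 in both vBM-MSC libraries. In bulk RNA, fewer expressing cells and less RNA per cell cannot be told apart.

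Pitx1 (chr13:55825054-55831425, 3 exons), the homeobox factor that specifies hindlimb identity, was at 3.46, 3 and 6.50 TPM in fBM-MSCs and 0.04 and 0 in vBM-MSCs. The ratio of its summed counts, scaled to library size, was 233, with a 95% counting interval of 64.2 to 1927 (edgeR adjusted p = 0.00877). Tbx4 (chr11:85886367-85916097, 7 to 9 exons), the hindlimb T-box factor downstream of Pitx1, was at 1.39, 1.07 and 0.96 TPM in fBM-MSCs and 0.02 and 0 in vBM-MSCs, a count ratio of 138, with a 95% counting interval of 24.5 to 5494 (edgeR adjusted p = 0.00212). Both groups were apart for these genes, with 1 vBM-MSC library at 0 and the other at a trace.

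Shox2 (chr3:66971723-66981771, 5 exons), needed for the humerus and femur, was at 17.1, 21.6 and 27.1 TPM in fBM-MSCs and 0 and 1.10 in vBM-MSCs (log2 fold change 5.41, SE 1.16, edgeR adjusted p = 0.0123). It was the most abundant of the 7 in fBM-MSCs, and every fBM-MSC library was over the vBM-MSC libraries, by 42.4-fold in the fit. Its promoter was listed as accessible in both tissues, at a fold enrichment of 9.56 in fBM-MSCs and 5.52 in vBM-MSCs, and within 50 kb fBM-MSCs had 6 regions (4 with nothing listed in vBM-MSCs) and vBM-MSCs 3. Within 1 kb of a start of Pitx1, Tbx4 or Tbx5 neither tissue had a region at the threshold of −log10 q ≥ 7.

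3 further factors were at 0 in both vBM-MSC libraries. Tbx5, the forelimb counterpart of Tbx4, was at 1.31, 0.21 and 0.64 TPM in fBM-MSCs, at least 36-fold over a floor of 3 counts in the vBM-MSC group (edgeR adjusted p = 0.00874). Isl1, an initiator of the hindlimb field, was at 1.49, 3.05 and 0.42 TPM (at least 56-fold, edgeR adjusted p = 0.0155), and Alx4, a limb and skull patterning factor, at 0.39, 0.30 and 0.37 TPM (at least 26.8-fold, edgeR adjusted p = 0.0495). Msx1, a target of BMP signalling in limb mesenchyme, was at 3.68, 5.34 and 4.39 TPM in fBM-MSCs and 0.93 and 2.24 in vBM-MSCs (log2 fold change 1.56, SE 0.44, edgeR adjusted p = 0.0409). Isl1, Alx4 and Msx1 missed the threshold without vBM-MSC replicate 1 (edgeR adjusted p = 0.0752 to 0.233), as did Alx4 without vBM-MSC replicate 2 (edgeR adjusted p = 0.107). Alx4 missed the threshold without fBM-MSC replicate 1 (edgeR adjusted p = 0.075), as did Alx4 and Msx1 without fBM-MSC replicate 2 (edgeR adjusted p = 0.0868 to 0.102), and Alx4 and Msx1 without fBM-MSC replicate 3 (edgeR adjusted p = 0.0633 to 0.0754). All 7 missed it with a weight per tissue (limma adjusted p = 0.101 to 0.254), and the fit of the 5 bone marrow libraries called Pitx1 and Tbx4 (edgeR adjusted p = 0.0232 to 0.0406).

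The 1 limb factor on the other side was Prrx2, a homeobox gene of limb and craniofacial mesenchyme, at 99.1, 86.1 and 96.7 TPM in fBM-MSCs and 229.9 and 187 in vBM-MSCs (log2 fold change -1.12, SE 0.17, edgeR adjusted p = 0.00171), with both vBM-MSC libraries over every fBM-MSC library. Its paralogue Prrx1 was at 35.8, 36.7 and 38.8 TPM in fBM-MSCs and 51.1 and 35.8 in vBM-MSCs (edgeR adjusted p = 0.495), and Tbx15 (edgeR adjusted p = 0.602) and Tbx18 (edgeR adjusted p = 0.778) were not called either. Barx1 was at 13.1, 1.89 and 13.7 TPM in fBM-MSCs and 0 and 1.20 in vBM-MSCs and missed the threshold (edgeR adjusted p = 0.0974). Irx3, Irx5, Meis1, Meis2, Emx2, Tbx2, Tbx3, Msx2, Hand2, Lhx9, En1 and Alx1 also missed it (edgeR adjusted p from 0.0522 to 0.807). Sall1 (0.15, 0.14 and 0.42 TPM in fBM-MSCs, 0 in vBM-MSCs) and Lhx2 were too low to test, and Hand1, Lmx1b, Barx2 and Sall4 were at 0 in all 5 libraries.

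**Figure D2:**
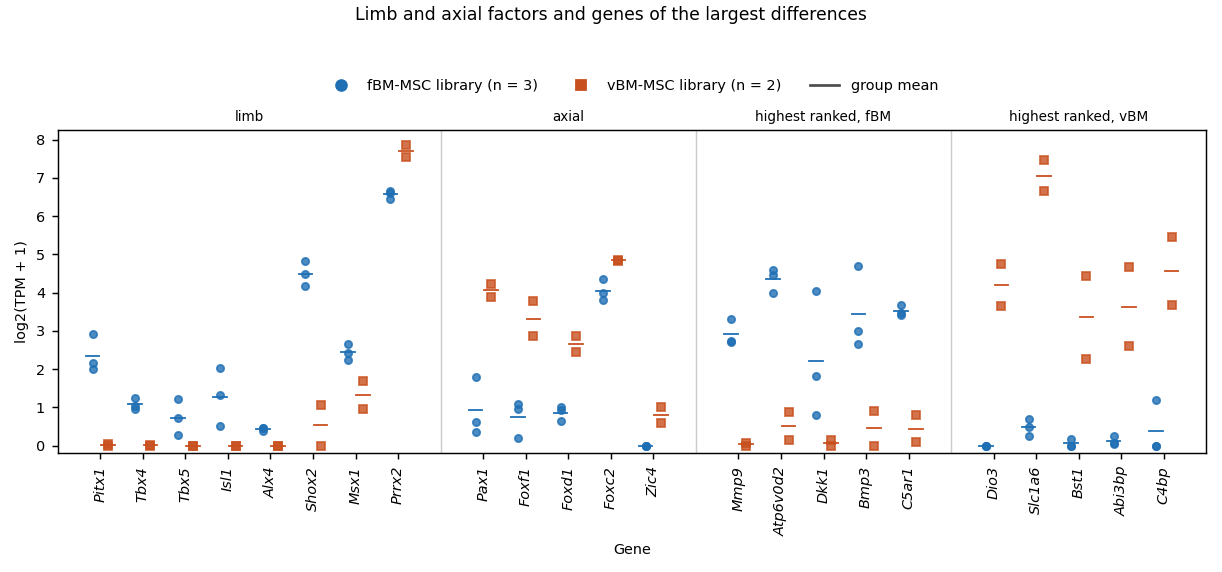
log2(TPM + 1) (y axis) of limb factors, axial factors and genes of the largest differences (x axis). Circles are the 3 fBM-MSC libraries, squares the 2 vBM-MSC libraries and bars the group means. Pitx1, Tbx4, Tbx5, Isl1 and Alx4 lie at or near 0 in vBM-MSCs, and Zic4 and Dio3 at 0 in fBM-MSCs.

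Hox genes split by paralogue number. Of groups 9 to 13, 3 of 9 tested genes were higher in fBM-MSCs and none in vBM-MSCs. Of groups 5 to 8, 8 of 10 were higher in vBM-MSCs, and of groups 1 to 4, 4 of 7, with none higher in fBM-MSCs. limma with a weight per tissue called 3 and 1 (Hoxb9) of groups 9 to 13, 5 of groups 5 to 8 and 2 of groups 1 to 4. In the 5 bone marrow libraries alone edgeR called 1 gene of each of the 3 sets. The 8 Hox 5 to 8 calls toward vBM-MSCs numbered 4 without fBM-MSC replicate 2 or vBM-MSC replicate 2 or P-MSC replicate 3, against 5 without vBM-MSC replicate 1 or A-MSC replicate 1 or P-MSC replicate 1 or 2.

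Hoxa10 (chr6:52231197-52240854), which patterns the thigh and the lumbar vertebrae, was at 19.1, 21.2 and 28.6 TPM in fBM-MSCs and 0.54 and 4.11 in vBM-MSCs (log2 fold change 3.42, SE 0.91, edgeR adjusted p = 0.0305). Hoxc10 (chr15:102966796-102971898), its HoxC paralogue, was at 19.3, 19.4 and 19.6 TPM in fBM-MSCs and 0.59 and 3.55 in vBM-MSCs (log2 fold change 3.32, SE 0.67, edgeR adjusted p = 0.0129). Hoxc13 was at 6.89, 9.57 and 5.35 TPM in fBM-MSCs and 0.49 and 1.23 in vBM-MSCs (log2 fold change 3.13, SE 0.49, edgeR adjusted p = 0.00414). Hoxc10 was nearly constant over the 3 fBM-MSC libraries and uneven over the vBM-MSC libraries, and the groups did not overlap for any of the 3 genes. Hoxa11, the gene of the zeugopod, was at 4.84, 3.67 and 7.89 TPM in fBM-MSCs and 0 and 0.50 in vBM-MSCs without passing the test (log2 fold change 4.52, SE 1.54, edgeR adjusted p = 0.0782). Hoxa9, Hoxc9, Hoxd9 and Hoxd10 were not called (edgeR adjusted p from 0.17 to 0.949). Hoxc11 (0.79, 1.68 and 1.29 TPM in fBM-MSCs and 0 and 0.06 in vBM-MSCs) and Hoxc12 (0.64, 1.27 and 0.79 TPM against 0) were under the count filter, and Hoxa13, Hoxb13, Hoxd11 and Hoxd13 stayed under 0.5 TPM in every library. Hoxd12 was at 0. Hoxa10 missed the threshold without fBM-MSC replicate 2 (edgeR adjusted p = 0.0568) or vBM-MSC replicate 1 (edgeR adjusted p = 0.156). Hoxa10 and Hoxc10 missed the threshold in the 5 bone marrow libraries (edgeR adjusted p = 0.0509 to 0.0657).

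The HoxB cluster (chr11:96194316-96368253) held 5 of the 12 genes called toward vBM-MSCs. Hoxb6 (chr11:96299074-96301569) was at 1.67, 0.13 and 0.11 TPM in fBM-MSCs and 18.4 and 25.8 in vBM-MSCs (log2 fold change -5.27, SE 0.78, edgeR adjusted p = 0.0017). Hoxb7 was at 9.66, 0.90 and 0.34 TPM in fBM-MSCs and 26.1 and 35.8 in vBM-MSCs (log2 fold change -3.09, SE 0.89, edgeR adjusted p = 0.0422). Hoxb5 was at 0, 0.19 and 0 TPM in fBM-MSCs and 4.70 and 4.19 in vBM-MSCs (log2 fold change -5.95, SE 0.79, edgeR adjusted p = 0.000893). Hoxb2 was at 1.61, 0.99 and 1.30 TPM in fBM-MSCs and 9.86 and 16.6 in vBM-MSCs (log2 fold change -3.29, SE 0.33, edgeR adjusted p = 0.000178). Hoxb8 was at 0.34, 0.06 and 0.02 TPM in fBM-MSCs and 1.29 and 1.32 in vBM-MSCs (log2 fold change -3.33, SE 0.90, edgeR adjusted p = 0.0329). In each case both vBM-MSC libraries were over all fBM-MSC libraries, and fBM-MSC replicate 1 was the highest femoral library for Hoxb6, Hoxb7 and Hoxb8. Hoxb9 was at 3.28, 1.13 and 0 TPM in fBM-MSCs and 12.3 and 16 in vBM-MSCs and missed the threshold in edgeR (log2 fold change -3.26, SE 1.01, edgeR adjusted p = 0.0553), but passed with a weight per tissue (limma adjusted p = 0.0276). Hoxb3 (0, 0.01 and 0.16 TPM in fBM-MSCs and 0.30 and 0.73 in vBM-MSCs, edgeR adjusted p = 0.0996) and Hoxb4 (0, 0 and 0.03 TPM in fBM-MSCs and 0.11 and 0.23 in vBM-MSCs, not tested) were low, and Hoxb1 was at 0. Hoxb5os, the antisense transcript of the cluster, was among the 10 largest differences toward vBM-MSCs (0.23, 0 and 0 TPM in fBM-MSCs and 16.3 and 13.2 in vBM-MSCs, edgeR adjusted p = 0.000846), but reads without strand cannot be told apart between it and Hoxb5.

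In the HoxA and HoxC clusters the same direction held for the low-numbered genes that were called. Hoxc8 was at 3.41, 2.10 and 2.51 TPM in fBM-MSCs and 19.2 and 17.8 in vBM-MSCs (log2 fold change -2.76, SE 0.32, edgeR adjusted p = 0.000846). Hoxa5 was at 0.45, 1.22 and 1.95 TPM in fBM-MSCs and 3.67 and 16.6 in vBM-MSCs (log2 fold change -2.92, SE 0.54, edgeR adjusted p = 0.00593). Hoxc6 was at 8.96, 9.49 and 6.19 TPM in fBM-MSCs and 14.4 and 20.9 in vBM-MSCs (edgeR adjusted p = 0.0442). Hoxc5 was at 2.11, 2.78 and 1.78 TPM in fBM-MSCs and 3.59 and 7.07 in vBM-MSCs (edgeR adjusted p = 0.0402). Hoxc4 was at 0.94, 1.72 and 0.97 TPM in fBM-MSCs and 2.83 and 4.99 in vBM-MSCs (edgeR adjusted p = 0.0242). These 3 neighbours overlap in some transcripts, so their counts are not fully separate. Hoxa3 was at 0.16, 0.50 and 0.03 TPM in fBM-MSCs and 2.13 and 3.50 in vBM-MSCs (log2 fold change -3.53, SE 0.66, edgeR adjusted p = 0.00646). Hoxa2 was at 0, 0.15 and 0 TPM in fBM-MSCs and 1.45 and 1.75 in vBM-MSCs (log2 fold change -4.81, SE 0.92, edgeR adjusted p = 0.00716). Hoxa7 (6.52, 6.54 and 6.79 TPM in fBM-MSCs and 3.54 and 12.9 in vBM-MSCs, edgeR adjusted p = 0.743), Hoxa4 (edgeR adjusted p = 0.105) and Hoxd8 (edgeR adjusted p = 0.999) were not called, Hoxa6 was not tested, and Hoxd1, Hoxd3 and Hoxd4 were at or under 0.42 TPM. Hoxb7, Hoxb8 and Hoxc6 missed the threshold without vBM-MSC replicate 1 (edgeR adjusted p = 0.0973 to 0.112), as did Hoxb7, Hoxb8, Hoxc6, Hoxc5 and Hoxc4 without vBM-MSC replicate 2 (edgeR adjusted p = 0.0513 to 0.227). Hoxc6, Hoxc5 and Hoxc4 missed the threshold without fBM-MSC replicate 1 (edgeR adjusted p = 0.054 to 0.0739), as did Hoxb7, Hoxb8, Hoxc6 and Hoxc5 without fBM-MSC replicate 2 (edgeR adjusted p = 0.0548 to 0.104), and Hoxc6, Hoxc5 and Hoxc4 without fBM-MSC replicate 3 (edgeR adjusted p = 0.0562 to 0.0958). Hoxb8, Hoxa5, Hoxc5, Hoxc4 and Hoxa2 missed it with a weight per tissue (limma adjusted p = 0.0561 to 0.127), and the fit of the 5 bone marrow libraries called Hoxb2 and Hoxc8 (edgeR adjusted p = 0.0147 to 0.0216).

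**Figure D3:**
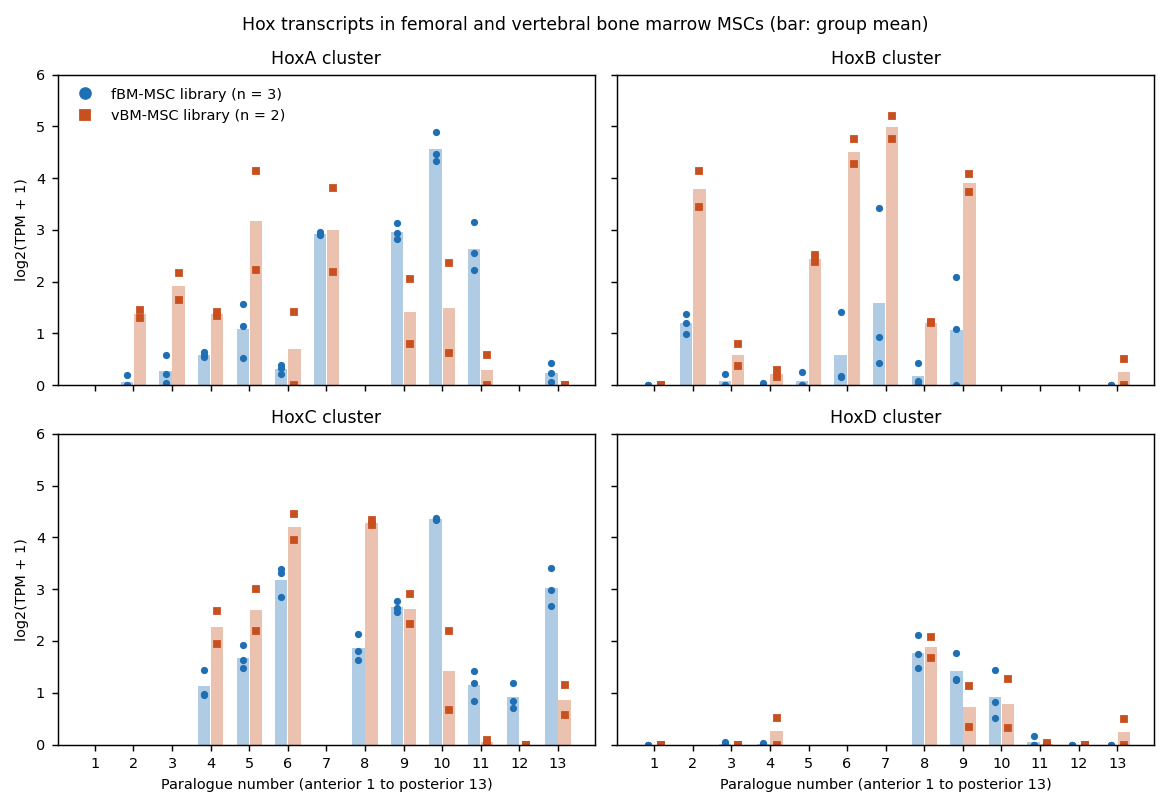
log2(TPM + 1) (y axis) of the Hox genes named in the text, by paralogue number (x axis), 1 panel per cluster. Circles are fBM-MSC and squares vBM-MSC libraries, and bars are group means. HoxB genes 2 and 5 to 9 stand higher in vBM-MSCs (Hoxb9 missed the threshold, adjusted p = 0.0553), and Hoxa10, Hoxc10 and Hoxc13 in fBM-MSCs.

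The pooled region lists were compared over the same clusters. In HoxB, 15 regions of vBM-MSCs covered 9375 bases, and 10 of them had no region of any strength in fBM-MSCs, whose list held 1 region of 374 bases there. In HoxC (chr15:102921131-103036852) fBM-MSCs had 14 regions, 5 of them absent in vBM-MSCs, and vBM-MSCs had 10, none absent in fBM-MSCs. HoxA (14 and 16 regions) and HoxD (8 and 6) were closer in number. Each list pools all replicates of a tissue, so these counts have no replicate check, and the reads behind each list are not given in it.

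At the start of Hoxb6, vBM-MSCs had a summit of fold enrichment 8.46 (−log10 q 15.3) and fBM-MSCs none. At Hoxa5 the values were 12.1 in vBM-MSCs (−log10 q 27.2) and none in fBM-MSCs, and at Hoxb9 12.9 in vBM-MSCs against 4.05 in fBM-MSCs, the latter under the threshold. Hoxc5 (8.09 in fBM-MSCs and 5.52 in vBM-MSCs) and Hoxc6 (6.25 and 3.68, the latter under the threshold) had the higher enrichment in fBM-MSCs, opposite to their transcripts. On the other side, Hoxa11 (6.62, −log10 q 10.01) and Hoxc11 (5.89, −log10 q 8.07) had a promoter summit in fBM-MSCs alone. Hoxa10 (8.46 and 6.99) and Hoxc10 (6.99 and 9.57) were listed in both tissues, and the higher enrichment of Hoxc10 was in vBM-MSCs, opposite to its transcript.

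The reference sequence at 3 of these summits is shown, Hoxb6 from the vertebral and Hoxa11 and Hoxc11 from the femoral side, where accessibility and the mean level of the transcript lay on the same side (RefSeq, GRCm38.p6, 5′ to 3′ on the strand of the gene, without bases in annotated exons). Capitals mark matches on either strand to AP-1 (TGACTCA or TGAGTCA), RUNX (TGTGGT or TGCGGT), TEAD (GGAATG) or the CCAAT box (CCAAT). Hoxb6 lies at chr11:96298982-96299073 (plus strand, beside its summit, which falls in an exon), Hoxa11 at chr6:52245817-52245970 (minus) and Hoxc11 at chr15:102953668-102953868 (plus).
Hoxb6: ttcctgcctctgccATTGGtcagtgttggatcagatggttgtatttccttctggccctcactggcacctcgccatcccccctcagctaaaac
Hoxa11: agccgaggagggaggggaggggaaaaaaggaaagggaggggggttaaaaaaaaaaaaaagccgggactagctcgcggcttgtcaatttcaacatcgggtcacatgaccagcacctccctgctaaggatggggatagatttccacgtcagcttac
Hoxc11: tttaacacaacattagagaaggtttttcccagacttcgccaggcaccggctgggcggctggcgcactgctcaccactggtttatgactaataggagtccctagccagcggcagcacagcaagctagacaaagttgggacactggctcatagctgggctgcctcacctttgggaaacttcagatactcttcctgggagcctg
The Hoxb6 stretch holds 1 CCAAT match. Of the promoter regions of each tissue, taken 100 bases to each side of the summit, 30.1% in fBM-MSCs and 29.1% in vBM-MSCs held CCAAT, 15.3% and 14.4% RUNX, 7.58% and 8.16% TEAD, and 5.03% and 3.85% AP-1. The Hoxa11 and Hoxc11 stretches hold none of these letters.

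Axial factors went the other way from the limb factors: of 16 tested, 5 were higher in vBM-MSCs and none in fBM-MSCs. The same 5 passed with a weight per tissue, and 1 passed in the 5 bone marrow libraries alone. The 5 axial calls toward vBM-MSCs numbered 2 without fBM-MSC replicate 2 or vBM-MSC replicate 1, against 3 without vBM-MSC replicate 2. Pax1 (chr2:147364994-147375049), the paired box gene of the sclerotome, was at 0.28, 2.48 and 0.54 TPM in fBM-MSCs and 17.9 and 13.8 in vBM-MSCs (log2 fold change -3.83, SE 0.81, edgeR adjusted p = 0.0116). Foxf1, a forkhead gene of sclerotome and visceral mesoderm, was at 0.14, 0.93 and 1.12 TPM in fBM-MSCs and 12.7 and 6.24 in vBM-MSCs (log2 fold change -3.63, SE 0.54, edgeR adjusted p = 0.00178). Foxd1 was at 0.90, 0.55 and 1.01 TPM in fBM-MSCs and 6.30 and 4.48 in vBM-MSCs (log2 fold change -2.68, SE 0.78, edgeR adjusted p = 0.0455). Foxc2, required for vertebral arches, was at 19.5, 14.8 and 13.1 TPM in fBM-MSCs and 28 and 27.5 in vBM-MSCs (log2 fold change -0.78, SE 0.19, edgeR adjusted p = 0.0216). The groups did not overlap for any of them.

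Zic1, Zic4 and Zic5, zinc finger factors of the dorsal neural tube and somites, were at 0 in femoral cells. Zic4 was at 0 in the 3 fBM-MSC libraries and at 0.52 and 1.03 TPM in vBM-MSCs, at least 62.3-fold over the floor of 3 counts (edgeR adjusted p = 0.0325). Zic1 (0 in fBM-MSCs, 0.43 and 1.12 TPM in vBM-MSCs, at least 50.6-fold) and Zic5 (0 and 2.38 and 0.67 TPM, at least 62.3-fold) had the same pattern under the filter and were not tested. Within 50 kb of Zic1, vBM-MSCs had 6 accessible regions, none with a counterpart of any strength in fBM-MSCs, and the Zic1 promoter had a fold enrichment of 8.09 in vBM-MSCs. Zic2 reached 0.14 TPM at most. Pax1, Foxd1 and Foxc2 missed the threshold without vBM-MSC replicate 1 (edgeR adjusted p = 0.0845 to 0.243), as did Foxd1 without vBM-MSC replicate 2 (edgeR adjusted p = 0.0644). Foxd1 missed the threshold without fBM-MSC replicate 1 (edgeR adjusted p = 0.0775), as did Foxd1, Foxc2 and Zic4 without fBM-MSC replicate 2 (edgeR adjusted p = 0.0629 to 0.124), and Foxd1 without fBM-MSC replicate 3 (edgeR adjusted p = 0.0631). Zic4 fell under the count filter without vBM-MSC replicate 1 or without vBM-MSC replicate 2 and was not tested there. Pax1, Foxf1, Foxc2 and Zic4 missed the threshold in the 5 bone marrow libraries (edgeR adjusted p = 0.0522 to 0.122).

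Pax9, the partner of Pax1, was at 0.35, 0.17 and 0.44 TPM in fBM-MSCs and 1.51 and 2.78 in vBM-MSCs (edgeR adjusted p = 0.0942), and Six2 at 0.84, 2.20 and 0.29 TPM against 0 (edgeR adjusted p = 0.0515), and both missed the threshold. Foxc1, Foxf2, Foxl1, Eya1, Ebf2, Meox2 and Pax3 were not called (edgeR adjusted p from 0.125 to 0.68). Meox2 was at 6.23, 3.83 and 0 TPM in fBM-MSCs and 0 and 2.24 in vBM-MSCs, so 1 library of each tissue was at 0. Tbx1 (0, 0 and 0 TPM in fBM-MSCs and 1.38 and 0.08 in vBM-MSCs), Meox1, Nkx3-2, Uncx, Foxd2, Sim2, Tbx6 and Lbx1 were under the filter, and Pax7, Tcf15, Sim1 and Gli1 at 0 in all 5 libraries.

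Osteoblast genes were higher in femoral cells where they were called: 7 of 28 in fBM-MSCs and none in vBM-MSCs. limma with a weight per tissue called 6, and edgeR on the 5 bone marrow libraries called 1. The 7 osteoblast calls toward fBM-MSCs numbered 3 without fBM-MSC replicate 2, 1 without vBM-MSC replicate 1, against 13 without vBM-MSC replicate 2. Osteoblasts are the bone-forming cells that arise from MSCs, driven by Runx2 and Sp7 and marked by secreted mineral-binding proteins, among them the acidic matrix proteins osteopontin (Spp1), bone sialoprotein (Ibsp), Dmp1 and Mepe. The summed level of all 32 listed genes was 31605, 44846 and 97054 TPM in fBM-MSCs and 5921 and 15392 TPM in vBM-MSCs. Spp1 alone, given below, made up most of this sum in every fBM-MSC library. Without Spp1 the sums of the groups overlapped.

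Spp1 (chr5:104435111-104441053) was at 26353, 38359.9 and 84015 TPM in fBM-MSCs and 1562 and 9037 in vBM-MSCs (log2 fold change 3.34, SE 0.66, edgeR adjusted p = 0.00835). fBM-MSC replicate 3 had the most and vBM-MSC replicate 1 the least, and the lowest femoral library was still over the highest vertebral one. Dmp1, a regulator of matrix mineralisation, was at 40.4, 96.7 and 159 TPM in fBM-MSCs and 0.80 and 17.2 in vBM-MSCs (log2 fold change 3.56, SE 0.95, edgeR adjusted p = 0.0315). Ibsp was at 218, 286 and 1009.7 TPM in fBM-MSCs and 16.9 and 321 in vBM-MSCs, where vBM-MSC replicate 2 lay inside the femoral range (log2 fold change 1.71, SE 0.90, edgeR adjusted p = 0.244), and Mepe was under the filter (0, 0.44 and 0.16 TPM in fBM-MSCs, 0 in vBM-MSCs).

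Bglap, which encodes osteocalcin, was at 155, 302 and 1065 TPM in fBM-MSCs and 4.10 and 73.7 in vBM-MSCs (log2 fold change 3.92, SE 1.09, edgeR adjusted p = 0.0457). Its near-identical neighbour Bglap2 was at 224, 490.4 and 1673 TPM in fBM-MSCs and 4.97 and 111 in vBM-MSCs (edgeR adjusted p = 0.0634), and reads shared by the pair make the split between them uncertain. Runx2, the osteoblast master factor, was at 5.40, 7.89 and 12.5 TPM in fBM-MSCs and 2.55 and 4.54 in vBM-MSCs (log2 fold change 1.31, SE 0.35, edgeR adjusted p = 0.0324). Dlx3 was at 7.70, 5.88 and 7.74 TPM in fBM-MSCs and 0.17 and 1.38 in vBM-MSCs (log2 fold change 3.29, SE 0.87, edgeR adjusted p = 0.0302). Ank, a pyrophosphate and ATP exporter that restrains mineral growth, was at 438, 437 and 671 TPM in fBM-MSCs and 92.6 and 218 in vBM-MSCs (log2 fold change 1.80, SE 0.43, edgeR adjusted p = 0.019). Runx2, Dlx3, Bglap, Dmp1 and Ank missed the threshold without vBM-MSC replicate 1 (edgeR adjusted p = 0.0708 to 0.216). Dlx3 missed the threshold without fBM-MSC replicate 1 (edgeR adjusted p = 0.0558), as did Runx2, Dlx3, Bglap and Dmp1 without fBM-MSC replicate 2 (edgeR adjusted p = 0.0549 to 0.0603), and Runx2, Bglap and Dmp1 without fBM-MSC replicate 3 (edgeR adjusted p = 0.0542 to 0.0949). Runx2 and Bglap missed it with a weight per tissue (limma adjusted p = 0.0819 to 0.179), and the fit of the 5 bone marrow libraries called none of them (edgeR adjusted p = 0.0607 to 0.161).

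Other members of the lineage were not called. Sp7 was at 10.1, 23.7 and 64.3 TPM in fBM-MSCs and 2.62 and 9.71 in vBM-MSCs (edgeR adjusted p = 0.0612). Dlx5 was at 9.09, 17.8 and 44.3 TPM in fBM-MSCs and 0.27 and 5.97 in vBM-MSCs (edgeR adjusted p = 0.111), with vBM-MSC replicate 1 lowest in both. Alkaline phosphatase Alpl was at 35.6, 27.6 and 173 TPM in fBM-MSCs and 11.6 and 76.9 in vBM-MSCs (edgeR adjusted p = 0.561). The bone collagen gene Col1a1 was at 767, 875 and 2161 TPM in fBM-MSCs and 725 and 957 in vBM-MSCs (edgeR adjusted p = 0.278). Sparc, Pth1r, Postn, Enpp1, Atf4 and Mmp13 also missed the threshold (edgeR adjusted p from 0.0525 to 0.857).

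Spp1, Ibsp, Bglap2 and Dlx3 had a promoter region in fBM-MSCs with nothing listed in vBM-MSCs, at fold enrichments of 6.25, 5.52, 5.89 and 6.25 and −log10 q between 7.14 and 9.03, near the threshold of 7. Dmp1 was the exception, with a promoter region in vBM-MSCs alone (fold enrichment 5.52, −log10 q 7.13). The Spp1 (chr5:104435013-104435110, plus strand) and Bglap2 (chr3:88378730-88378930, minus strand) promoters are shown as femoral regions of bone matrix genes, marked as above and without exon bases, so that the Spp1 stretch ends before its summit.
Spp1: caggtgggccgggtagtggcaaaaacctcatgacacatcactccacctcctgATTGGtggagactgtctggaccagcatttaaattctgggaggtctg
Bglap2: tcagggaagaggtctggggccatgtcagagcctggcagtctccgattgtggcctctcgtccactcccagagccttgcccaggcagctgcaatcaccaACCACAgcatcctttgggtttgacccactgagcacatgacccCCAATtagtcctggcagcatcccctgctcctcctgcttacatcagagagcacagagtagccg
Spp1 holds 1 CCAAT match, and Bglap2 holds 1 RUNX and 1 CCAAT match.

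Contractile genes of smooth muscle and pericytes, the mural cells of vessels, were higher in vBM-MSCs for 10 of 15 and in fBM-MSCs for none, with 9 at a weight per tissue and 6 in the 5 bone marrow libraries. Summed over 17 genes, the level was 3189, 3007 and 2725 TPM in fBM-MSCs and 12899 and 10955 TPM in vBM-MSCs. Acta2 (chr19:34240336-34255373), smooth muscle actin, was at 821, 809.8 and 702 TPM in fBM-MSCs and 5771 and 4257 in vBM-MSCs (log2 fold change -2.66, SE 0.16, edgeR adjusted p = 7.57e-06). Myl9, the regulatory myosin light chain, was at 375, 401 and 472 TPM in fBM-MSCs and 1662 and 1796 in vBM-MSCs (log2 fold change -2.01, SE 0.12, edgeR adjusted p = 7.57e-06). Tagln (transgelin) was at 632, 514 and 352 TPM in fBM-MSCs and 1682 and 1816 in vBM-MSCs (log2 fold change -1.76, SE 0.20, edgeR adjusted p = 0.000373). Calponin Cnn1 was at 11, 34 and 15.9 TPM in fBM-MSCs and 254 and 112 in vBM-MSCs (log2 fold change -3.19, SE 0.43, edgeR adjusted p = 0.000913). In all 4 the lower vBM-MSC library was over the highest fBM-MSC library.

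Enteric actin Actg2 was at 132, 33.2 and 51.2 TPM in fBM-MSCs and 1104 and 901 in vBM-MSCs (log2 fold change -3.75, SE 0.46, edgeR adjusted p = 0.000564). Leiomodin Lmod1 was at 0.34, 0.58 and 0.64 TPM in fBM-MSCs and 5.36 and 3.92 in vBM-MSCs (log2 fold change -3.11, SE 0.27, edgeR adjusted p = 7.36e-05). The late marker Myh11, smooth muscle myosin, was under 1 TPM throughout (0.07, 0.10 and 0.01 TPM in fBM-MSCs and 0.45 and 0.79 in vBM-MSCs, log2 fold change -3.39, SE 0.55, edgeR adjusted p = 0.00276), and desmin (Des) was at 1.28, 1.68 and 0.70 TPM in fBM-MSCs and 0.80 and 1.18 in vBM-MSCs, without a call. Tpm1, Tpm2 and the pericyte surface protein Mcam (CD146, 0.39, 3.91 and 1.74 TPM in fBM-MSCs and 13.6 and 14.5 in vBM-MSCs) were also higher in vBM-MSCs. Tpm2 missed the threshold without vBM-MSC replicate 1 (edgeR adjusted p = 0.0774). Myh11 missed the threshold with a weight per tissue (limma adjusted p = 0.192), and Myh11, Tpm1, Tpm2 and Mcam in the 5 bone marrow libraries (edgeR adjusted p = 0.0953 to 0.138). The promoter enrichment of Acta2 was 9.93 in fBM-MSCs and 22.4 in vBM-MSCs, and that of Tagln 7.73 and 19.5. At Myl9 the values were 4.41, under the threshold, and 11.4, and Cnn1 was listed in vBM-MSCs alone (5.52).

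**Figure D4:**
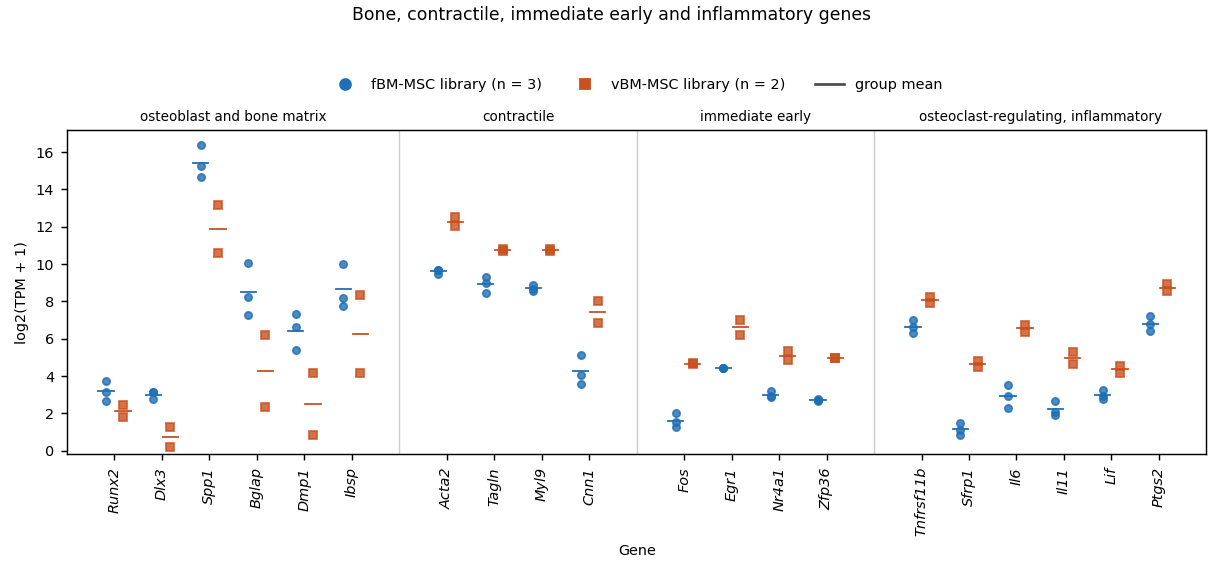
log2(TPM + 1) (y axis) of osteoblast and bone matrix, contractile, immediate early, and osteoclast-regulating or inflammatory genes (x axis). Circles are fBM-MSC and squares vBM-MSC libraries, and bars are group means. Bone genes stand higher in fBM-MSCs, except Ibsp, which overlaps, and the other 3 sets stand higher in vBM-MSCs.

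Genes of a list that joins immediate early genes, which cells switch on within minutes of a stimulus, with stress response genes were higher in vBM-MSCs for 11 of 19 and in fBM-MSCs for none (9 at a weight per tissue, 6 in the 5 bone marrow libraries). Fos, a subunit of AP-1, was at 1.44, 1.90 and 3.04 TPM in fBM-MSCs and 23.9 and 24.7 in vBM-MSCs (log2 fold change -3.46, SE 0.29, edgeR adjusted p = 5.31e-05). Egr1 was at 20.3, 20.9 and 20.9 TPM in fBM-MSCs and 72.1 and 128 in vBM-MSCs (log2 fold change -2.21, SE 0.17, edgeR adjusted p = 3.93e-05). Nr4a1 was at 6.26, 6.75 and 8.07 TPM in fBM-MSCs and 27.8 and 39.6 in vBM-MSCs (log2 fold change -2.20, SE 0.18, edgeR adjusted p = 5.31e-05). Zfp36, which destabilises cytokine mRNAs, was at 5.33, 5.85 and 5.47 TPM in fBM-MSCs and 29.8 and 29.7 in vBM-MSCs (log2 fold change -2.38, SE 0.15, edgeR adjusted p = 8.79e-06). Both vBM-MSC libraries were over all fBM-MSC libraries for these 4 genes. Ier2, Btg2, Fosb, Egr2, Dusp1, Ier3 and Hspa5 were the other 7, and Hspa5, a chaperone of the endoplasmic reticulum, belongs to the stress genes. Egr2 and Dusp1 missed the threshold without vBM-MSC replicate 1 (edgeR adjusted p = 0.0932 to 0.114), as did Ier3 and Hspa5 without vBM-MSC replicate 2 (edgeR adjusted p = 0.166 to 0.201). Ier3 and Hspa5 missed the threshold without fBM-MSC replicate 1 (edgeR adjusted p = 0.064 to 0.0844), as did Ier3 and Hspa5 without fBM-MSC replicate 2 (edgeR adjusted p = 0.0769 to 0.112). Ier3 and Hspa5 missed the threshold with a weight per tissue (limma adjusted p = 0.0516 to 0.114), and Fosb, Egr2, Dusp1, Ier3 and Hspa5 in the 5 bone marrow libraries (edgeR adjusted p = 0.0839 to 0.186).

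The AP-1 subunits and RUNX factors as a family were less uniform. Fosl1 was at 64.5, 58.1 and 54 TPM in fBM-MSCs and 81.6 and 104 in vBM-MSCs (log2 fold change -0.60, SE 0.16, edgeR adjusted p = 0.0284). Junb was at 86.8, 65.7 and 60.4 TPM in fBM-MSCs and 97.7 and 153 in vBM-MSCs and missed the threshold (edgeR adjusted p = 0.0642). Jun was at 32.8, 30.4 and 21 TPM in fBM-MSCs and 22.6 and 48 in vBM-MSCs, with vBM-MSC replicate 1 inside the femoral range (edgeR adjusted p = 0.564). Fosl2 (edgeR adjusted p = 0.0946) and Jund (edgeR adjusted p = 0.865) were not called either. Runx1 was not called (4, 5.59 and 5.07 TPM in fBM-MSCs and 4.41 and 5.86 in vBM-MSCs, edgeR adjusted p = 0.933). Runx3 was at 1.43, 3.34 and 7.67 TPM in fBM-MSCs and 0.04 and 1.48 in vBM-MSCs (edgeR adjusted p = 0.225). Among GATA factors, Gata2 was at 4.77, 5.01 and 2.42 TPM in fBM-MSCs and 6.74 and 13.9 in vBM-MSCs (log2 fold change -1.29, SE 0.31, edgeR adjusted p = 0.0214). Fosl1 missed the threshold without vBM-MSC replicate 1 (edgeR adjusted p = 0.0788), as did Fosl1 and Gata2 without vBM-MSC replicate 2 (edgeR adjusted p = 0.0927 to 0.144). Fosl1 missed the threshold without fBM-MSC replicate 2 (edgeR adjusted p = 0.0818), as did Fosl1 without fBM-MSC replicate 3 (edgeR adjusted p = 0.0596). Fosl1 and Gata2 missed the threshold with a weight per tissue (limma adjusted p = 0.0593 to 0.0741), and Fosl1 and Gata2 in the 5 bone marrow libraries (edgeR adjusted p = 0.104 to 0.141). Of the 18 AP-1, RUNX and GATA genes tested, 1 was higher in fBM-MSCs and 4 in vBM-MSCs, where 5.24% and 7.56% of all genes were. The 4 AP-1, RUNX and GATA calls toward vBM-MSCs numbered 2 with a weight per tissue, against 1 on the 5 bone marrow libraries.

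Genes by which stromal cells regulate osteoclasts, the bone-resorbing cells, were higher in vBM-MSCs for 8 of 16 and in fBM-MSCs for none (7 at a weight per tissue, 6 in the 5 bone marrow libraries). Tnfrsf11b, which encodes the decoy receptor osteoprotegerin, was at 127, 97.5 and 78.4 TPM in fBM-MSCs and 298 and 243 in vBM-MSCs (log2 fold change -1.39, SE 0.20, edgeR adjusted p = 0.00171). Its ligand RANKL (Tnfsf11) was low, at 0, 0.34 and 1.61 TPM in fBM-MSCs and 0 and 0.97 in vBM-MSCs (edgeR adjusted p = 0.88). Csf1, the macrophage growth factor, was at 384, 491 and 315 TPM in fBM-MSCs and 295 and 428 in vBM-MSCs (edgeR adjusted p = 0.999). The Wnt antagonist Sfrp1 was at 0.78, 1.2 and 1.85 TPM in fBM-MSCs and 21 and 26.8 in vBM-MSCs (log2 fold change -4.16, SE 0.41, edgeR adjusted p = 0.000169).

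The cytokines of the gp130 family in this list were higher in vBM-MSCs. Il6 was at 10.4, 6.72 and 3.83 TPM in fBM-MSCs and 105 and 82.5 in vBM-MSCs (log2 fold change -3.75, SE 0.33, edgeR adjusted p = 7.36e-05). Il11 was at 5.24, 3.26 and 2.80 TPM in fBM-MSCs and 37.7 and 24.3 in vBM-MSCs (log2 fold change -3.09, SE 0.42, edgeR adjusted p = 0.00102). Lif was at 5.83, 6.76 and 8.44 TPM in fBM-MSCs and 17.1 and 22.1 in vBM-MSCs (log2 fold change -1.43, SE 0.23, edgeR adjusted p = 0.00289). The groups did not overlap for any of the 3. Ptgs2 (COX-2), the inducible step of prostaglandin synthesis, was at 148, 111 and 83.7 TPM in fBM-MSCs and 489.6 and 372 in vBM-MSCs (log2 fold change -1.88, SE 0.22, edgeR adjusted p = 0.000374), and the secreted Sema3a and the membrane-bound ligand Efnb2 were the remaining 2. Sema3a missed the threshold without vBM-MSC replicate 1 (edgeR adjusted p = 0.117). Efnb2 missed the threshold with a weight per tissue (limma adjusted p = 0.0932), and Sema3a and Efnb2 in the 5 bone marrow libraries (edgeR adjusted p = 0.117 to 0.151). The Il6, Il11, Sfrp1 and Ptgs2 promoters were listed in both tissues, with fold enrichments of 10.7 and 11.4, 8.83 and 9.57, 8.83 and 10.3, and 20.6 and 15.1 in fBM-MSCs and vBM-MSCs.

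Mediators through which MSCs restrain immune cells included 3 of the same genes: 6 of 14 were higher in vBM-MSCs and none in fBM-MSCs. The 6 immune mediator calls toward vBM-MSCs numbered 3 on the 5 bone marrow libraries. Tnfaip6, which encodes TSG-6, was at 0.77, 0.34 and 1.93 TPM in fBM-MSCs and 7.45 and 8.31 in vBM-MSCs (log2 fold change -2.88, SE 0.55, edgeR adjusted p = 0.00687). Prostaglandin E synthase Ptges was at 6.80, 15.2 and 17.1 TPM in fBM-MSCs and 52.6 and 41.2 in vBM-MSCs (log2 fold change -1.82, SE 0.29, edgeR adjusted p = 0.00264). Galectin-9 (Lgals9) was at 162, 219 and 147 TPM in fBM-MSCs and 334 and 299.6 in vBM-MSCs (log2 fold change -0.82, SE 0.15, edgeR adjusted p = 0.00626). Lgals9 missed the threshold without vBM-MSC replicate 1 (edgeR adjusted p = 0.066). Tnfaip6, Ptges and Lgals9 missed the threshold in the 5 bone marrow libraries (edgeR adjusted p = 0.0559 to 0.0933). Chemokines went the other way, with 3 of 11 higher in fBM-MSCs and none in vBM-MSCs. Cxcl16 was at 31, 31 and 27.4 TPM in fBM-MSCs and 5.09 and 7.08 in vBM-MSCs (log2 fold change 2.34, SE 0.22, edgeR adjusted p = 0.000131). Cxcl14 was at 57.5, 44.4 and 69.5 TPM in fBM-MSCs and 0.71 and 9.43 in vBM-MSCs (log2 fold change 3.60, SE 0.74, edgeR adjusted p = 0.01). Cx3cl1, fractalkine, was at 38, 74 and 96 TPM in fBM-MSCs and 25.6 and 26.2 in vBM-MSCs (log2 fold change 1.45, SE 0.28, edgeR adjusted p = 0.00758). Cx3cl1 missed the threshold without vBM-MSC replicate 1 (edgeR adjusted p = 0.0503). Cxcl14 and Cx3cl1 missed the threshold in the 5 bone marrow libraries (edgeR adjusted p = 0.0915 to 0.0946). The 3 chemokine calls toward fBM-MSCs numbered 1 on the 5 bone marrow libraries.

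Of 21 genes by which marrow stroma supports blood stem cells, 2 were higher in fBM-MSCs and 6 in vBM-MSCs. On the 5 bone marrow libraries edgeR called 0 toward fBM-MSCs (2 at an unadjusted p under 0.05) and 4 toward vBM-MSCs. The central niche factors were not among them: Cxcl12 was at 178, 211 and 337 TPM in fBM-MSCs and 373 and 351 in vBM-MSCs (edgeR adjusted p = 0.183). Stem cell factor Kitl was at 24.8, 13.5 and 6.66 TPM in fBM-MSCs and 7.48 and 6.55 in vBM-MSCs (edgeR adjusted p = 0.0942), and Lepr, the marker of the adult perivascular niche cell, was under 0.8 TPM in every library. Il7, the lymphoid growth factor, was at 31.1, 25.4 and 16.6 TPM in fBM-MSCs and 2.66 and 9.69 in vBM-MSCs (log2 fold change 2.07, SE 0.43, edgeR adjusted p = 0.011). The BMP antagonist Grem1 was at 171, 103 and 153 TPM in fBM-MSCs and 32.1 and 89.5 in vBM-MSCs (log2 fold change 1.32, SE 0.33, edgeR adjusted p = 0.0236), both toward fBM-MSCs. Toward vBM-MSCs, besides Il6, Il11 and Lif, were 2 PDGF receptors and a Notch ligand. Pdgfrb was at 42.1, 32.4 and 43.9 TPM in fBM-MSCs and 76.7 and 89.4 in vBM-MSCs (log2 fold change -1.02, SE 0.15, edgeR adjusted p = 0.00137). Pdgfra was at 0.27, 0.76 and 0.75 TPM in fBM-MSCs and 1.81 and 4.48 in vBM-MSCs (log2 fold change -2.31, SE 0.37, edgeR adjusted p = 0.00277). Jag1, the Notch ligand, was at 2.32, 3.79 and 6.61 TPM in fBM-MSCs and 11 and 14.4 in vBM-MSCs (log2 fold change -1.53, SE 0.30, edgeR adjusted p = 0.00839). The 2 niche calls toward fBM-MSCs numbered 1 without fBM-MSC replicate 1 or vBM-MSC replicate 1. Grem1 missed the threshold without fBM-MSC replicate 1 (edgeR adjusted p = 0.0507) or vBM-MSC replicate 1 (edgeR adjusted p = 0.129). Il7, Grem1, Pdgfra and Jag1 missed the threshold in the 5 bone marrow libraries (edgeR adjusted p = 0.0732 to 0.15).

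The other MSC fates gave few calls among their master factors. Of 19 adipogenic genes 1 was higher in fBM-MSCs and 4 in vBM-MSCs, where 5.24% and 7.56% of all genes were. Pparg, which drives fat cell formation, was at 4.67, 5.50 and 12.7 TPM in fBM-MSCs and 5.13 and 10.3 in vBM-MSCs (edgeR adjusted p = 0.918). Its partner Cebpa was at 2.13, 3.38 and 4.28 TPM in fBM-MSCs and 1.90 and 4.13 in vBM-MSCs (edgeR adjusted p = 0.875), and neither was called. Zfp521, an inhibitor of that fate, was at 4.44, 5.56 and 3.93 TPM in fBM-MSCs and 1.98 and 3.03 in vBM-MSCs (log2 fold change 0.94, SE 0.23, edgeR adjusted p = 0.0229). Toward vBM-MSCs, apolipoprotein Apoe was at 1.74, 2.60 and 1.11 TPM in fBM-MSCs and 10.2 and 62.8 in vBM-MSCs (log2 fold change -4.22, SE 0.76, edgeR adjusted p = 0.00503). Dlk1, which holds preadipocytes undifferentiated, was at 0.35, 0.24 and 0.25 TPM in fBM-MSCs and 1.88 and 4.44 in vBM-MSCs (log2 fold change -3.47, SE 0.81, edgeR adjusted p = 0.0181). The remaining 2 were Cebpb (edgeR adjusted p = 0.0488) and Pdgfra. Sox9, the cartilage master factor, was at 9.45, 7.69 and 6.44 TPM in fBM-MSCs and 11.6 and 12.3 in vBM-MSCs (edgeR adjusted p = 0.167). The 1 called of 13 chondrocyte genes, Col11a1, was at 1.99, 1.74 and 4.46 TPM in fBM-MSCs and 6.96 and 10.5 in vBM-MSCs (log2 fold change -1.61, SE 0.36, edgeR adjusted p = 0.0139). The 4 adipogenic calls toward vBM-MSCs numbered 2 with a weight per tissue or on the 5 bone marrow libraries or without fBM-MSC replicate 2 or vBM-MSC replicate 2. Zfp521 and Cebpb missed the threshold without vBM-MSC replicate 1 (edgeR adjusted p = 0.114 to 0.166), as did Dlk1, Cebpb and Col11a1 without vBM-MSC replicate 2 (edgeR adjusted p = 0.0553 to 0.152). Cebpb missed the threshold without fBM-MSC replicate 1 (edgeR adjusted p = 0.0635), as did Zfp521, Dlk1 and Cebpb without fBM-MSC replicate 2 (edgeR adjusted p = 0.0601 to 0.136), and Cebpb without fBM-MSC replicate 3 (edgeR adjusted p = 0.0607). Zfp521, Apoe and Cebpb missed the threshold with a weight per tissue (limma adjusted p = 0.0551 to 0.153), and Zfp521, Cebpb and Col11a1 in the 5 bone marrow libraries (edgeR adjusted p = 0.0722 to 0.107).

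The tendon list and the list of matrix genes and proteases leaned to vBM-MSCs. Of 11 tendon list genes 5 were higher there and 1 in fBM-MSCs, and of 35 matrix genes 11 and 3. The 5 were the matrix genes Col14a1, Dcn, Col3a1 and Bgn, and Egr1, which was also counted among the immediate early genes. The 1 toward fBM-MSCs was Mkx, given below. The 5 tendon calls toward vBM-MSCs numbered 2 on the 5 bone marrow libraries, against 3 without fBM-MSC replicate 2 or vBM-MSC replicate 1. The 11 matrix calls toward vBM-MSCs numbered 6 on the 5 bone marrow libraries. Decorin (Dcn), a small collagen-binding proteoglycan, was at 5.11, 2.78 and 5.13 TPM in fBM-MSCs and 25.8 and 90.4 in vBM-MSCs (log2 fold change -3.63, SE 0.49, edgeR adjusted p = 0.000959). Col8a1 was at 89.5, 96.4 and 67.5 TPM in fBM-MSCs and 337 and 327 in vBM-MSCs (log2 fold change -1.94, SE 0.15, edgeR adjusted p = 4.83e-05). Fibulin Fbln5, which assembles elastic fibres, was at 40.7, 22.7 and 19.3 TPM in fBM-MSCs and 241 and 149 in vBM-MSCs (log2 fold change -2.80, SE 0.31, edgeR adjusted p = 0.000275). The lysyl oxidase Loxl1 was at 28.5, 21.8 and 23.3 TPM in fBM-MSCs and 59.1 and 67.2 in vBM-MSCs (log2 fold change -1.32, SE 0.14, edgeR adjusted p = 0.000203). Matrix Gla protein Mgp, an inhibitor of calcification, was at 6477, 5207 and 3860.4 TPM in fBM-MSCs and 15214 and 17832 in vBM-MSCs (log2 fold change -1.61, SE 0.25, edgeR adjusted p = 0.00202), the opposite side from Spp1 and Bglap. The fibrillar collagen Col3a1 was at 45.4, 22.8 and 50.3 TPM in fBM-MSCs and 108 and 167 in vBM-MSCs (log2 fold change -1.73, SE 0.31, edgeR adjusted p = 0.00476). Col12a1 was at 6.61, 4.80 and 4.36 TPM in fBM-MSCs and 11.5 and 21.5 in vBM-MSCs (log2 fold change -1.58, SE 0.24, edgeR adjusted p = 0.00178).

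Toward fBM-MSCs, Mkx, a tendon transcription factor, was at 3.94, 4.30 and 3.99 TPM in fBM-MSCs and 0.25 and 1.51 in vBM-MSCs (log2 fold change 2.30, SE 0.64, edgeR adjusted p = 0.0384). Fibronectin Fn1 was at 354, 428 and 395 TPM in fBM-MSCs and 131 and 319.7 in vBM-MSCs (log2 fold change 0.88, SE 0.26, edgeR adjusted p = 0.0486). Timp1, an inhibitor of matrix metalloproteinases, was at 12671, 8936 and 5173 TPM in fBM-MSCs and 3495 and 4983 in vBM-MSCs (log2 fold change 1.14, SE 0.30, edgeR adjusted p = 0.0295), and Mmp9 was the third, described with the largest differences. The 3 matrix calls toward fBM-MSCs numbered 1 with a weight per tissue or on the 5 bone marrow libraries or without fBM-MSC replicate 1 or 3 or P-MSC replicate 2 or 3, 0 without fBM-MSC replicate 2 (edgeR, 4 at an unadjusted p under 0.05), against 0 without vBM-MSC replicate 1 (edgeR, 4 at an unadjusted p under 0.05). Mkx, Fn1 and Timp1 missed the threshold without vBM-MSC replicate 1 (edgeR adjusted p = 0.155 to 0.226), as did Timp1 without vBM-MSC replicate 2 (edgeR adjusted p = 0.0553). Mkx and Fn1 missed the threshold without fBM-MSC replicate 1 (edgeR adjusted p = 0.0606 to 0.0618), as did Mkx, Fn1 and Timp1 without fBM-MSC replicate 2 (edgeR adjusted p = 0.0551 to 0.108), and Mkx and Fn1 without fBM-MSC replicate 3 (edgeR adjusted p = 0.057 to 0.0682). Mkx and Timp1 missed the threshold with a weight per tissue (limma adjusted p = 0.0593 to 0.068), and Col3a1, Mkx, Fn1 and Timp1 in the 5 bone marrow libraries (edgeR adjusted p = 0.0577 to 0.205).

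Among IGF and FGF genes, 3 of 23 were higher in fBM-MSCs and 5 in vBM-MSCs. Igf1, the main skeletal growth factor, was at 20.4, 6.11 and 4.78 TPM in fBM-MSCs and 185 and 67 in vBM-MSCs (log2 fold change -3.67, SE 0.59, edgeR adjusted p = 0.00266). Igfbp4 was at 203, 107 and 147 TPM in fBM-MSCs and 602 and 332 in vBM-MSCs (log2 fold change -1.59, SE 0.39, edgeR adjusted p = 0.0229). Pappa, the protease that cleaves it, was at 1.23, 0.95 and 1.29 TPM in fBM-MSCs and 2.81 and 3.25 in vBM-MSCs (log2 fold change -1.34, SE 0.28, edgeR adjusted p = 0.0118). The FGF receptor Fgfr1 was at 85.7, 114 and 139 TPM in fBM-MSCs and 21.9 and 58.5 in vBM-MSCs (log2 fold change 1.57, SE 0.30, edgeR adjusted p = 0.00695). Igfbp3 was at 19.4, 12.9 and 8.86 TPM in fBM-MSCs and 0.58 and 3.55 in vBM-MSCs (log2 fold change 2.82, SE 0.69, edgeR adjusted p = 0.0217), both toward fBM-MSCs. Fgf1 followed at 1.87, 8.90 and 16 TPM in fBM-MSCs and 0 and 0.68 in vBM-MSCs (log2 fold change 4.77, SE 1.35, edgeR adjusted p = 0.0409). The 3 IGF and FGF calls toward fBM-MSCs numbered 1 with a weight per tissue or without vBM-MSC replicate 1, against 0 on the 5 bone marrow libraries (edgeR, 4 at an unadjusted p under 0.05). The 5 IGF and FGF calls toward vBM-MSCs numbered 1 on the 5 bone marrow libraries or without vBM-MSC replicate 1, 2 without fBM-MSC replicate 2, against 9 without fBM-MSC replicate 3. Igfbp4, Pappa, Igfbp3 and Fgf1 missed the threshold without vBM-MSC replicate 1 (edgeR adjusted p = 0.0576 to 0.237). Igfbp4 and Fgf1 missed the threshold without fBM-MSC replicate 2 (edgeR adjusted p = 0.0721 to 0.0802), as did Fgf1 without fBM-MSC replicate 3 (edgeR adjusted p = 0.0961). Igfbp3 and Fgf1 missed the threshold with a weight per tissue (limma adjusted p = 0.113 to 0.388), and Igf1, Igfbp4, Fgfr1, Igfbp3 and Fgf1 in the 5 bone marrow libraries (edgeR adjusted p = 0.0596 to 0.13).

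BMP and TGF-beta genes were called 3 times toward fBM-MSCs and 6 times toward vBM-MSCs, of 36. Tgfb3 was at 22.4, 29.8 and 36.2 TPM in fBM-MSCs and 92.7 and 128 in vBM-MSCs (log2 fold change -1.85, SE 0.18, edgeR adjusted p = 0.000177). The activin antagonist Fst was at 33.7, 21.6 and 18 TPM in fBM-MSCs and 128 and 134 in vBM-MSCs (log2 fold change -2.38, SE 0.26, edgeR adjusted p = 0.000253). Fstl1 was at 184, 183 and 163 TPM in fBM-MSCs and 385 and 423 in vBM-MSCs (log2 fold change -1.15, SE 0.10, edgeR adjusted p = 6.45e-05). The type I receptor Acvr1 was at 8.39, 11.3 and 8.73 TPM in fBM-MSCs and 24.4 and 22.5 in vBM-MSCs (log2 fold change -1.27, SE 0.19, edgeR adjusted p = 0.00164). Bmp3, which opposes osteogenic BMPs, was at 5.27, 7.04 and 24.8 TPM in fBM-MSCs and 0 and 0.89 in vBM-MSCs (log2 fold change 4.87, SE 1.24, edgeR adjusted p = 0.032). Of 28 Wnt genes, 3 were higher in fBM-MSCs and 1, Sfrp1, in vBM-MSCs, where 5.24% and 7.56% of all genes were. Lgr6, a receptor for R-spondins, was at 20.4, 39.6 and 64.7 TPM in fBM-MSCs and 1.59 and 4.46 in vBM-MSCs (log2 fold change 3.85, SE 0.66, edgeR adjusted p = 0.00395). Wnt9a was at 6.21, 9.06 and 11.1 TPM in fBM-MSCs and 1.88 and 5.39 in vBM-MSCs (log2 fold change 1.35, SE 0.39, edgeR adjusted p = 0.045). The antagonist Dkk1 was at 0.74, 2.51 and 15.5 TPM in fBM-MSCs and 0 and 0.10 in vBM-MSCs (log2 fold change 6.86, SE 1.78, edgeR adjusted p = 0.0462), where fBM-MSC replicate 3 held most of the signal. The 3 BMP and TGF-beta calls toward fBM-MSCs numbered 0 on the 5 bone marrow libraries (edgeR, 8 at an unadjusted p under 0.05), 0 without vBM-MSC replicate 1 (edgeR, 4 at an unadjusted p under 0.05), against 6 without vBM-MSC replicate 2. The 3 Wnt calls toward fBM-MSCs numbered 1 with a weight per tissue or on the 5 bone marrow libraries or without fBM-MSC replicate 2 or 3 or vBM-MSC replicate 1 or A-MSC replicate 1 or 2 or P-MSC replicate 1, 2 or 3, against 5 without fBM-MSC replicate 1. The count of Wnt calls toward vBM-MSCs, 1 with all libraries, was 2 without fBM-MSC replicate 1 and 3 without fBM-MSC replicate 3. Bmp3, Wnt9a and Dkk1 missed the threshold without vBM-MSC replicate 1 (edgeR adjusted p = 0.0816 to 0.247), as did Dkk1 without vBM-MSC replicate 2 (edgeR adjusted p = 0.0824). Wnt9a and Dkk1 missed the threshold without fBM-MSC replicate 2 (edgeR adjusted p = 0.064 to 0.0888), as did Bmp3, Wnt9a and Dkk1 without fBM-MSC replicate 3 (edgeR adjusted p = 0.0885 to 0.104). Bmp3, Wnt9a and Dkk1 missed the threshold with a weight per tissue (limma adjusted p = 0.0551 to 0.42), and Bmp3, Wnt9a and Dkk1 in the 5 bone marrow libraries (edgeR adjusted p = 0.0999 to 0.162).

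Hedgehog, retinoid and Notch genes were higher in vBM-MSCs for 8 of 25 and in fBM-MSCs for 1. Aldh1a1, Aldh1a2 and Aldh1a3 make retinoic acid. Aldh1a3 was at 0.98, 0.78 and 0.40 TPM in fBM-MSCs and 5.87 and 5.71 in vBM-MSCs (log2 fold change -3.03, SE 0.32, edgeR adjusted p = 0.000253). Aldh1a1 was at 43.9, 34.3 and 7.78 TPM in fBM-MSCs and 134 and 92.8 in vBM-MSCs (log2 fold change -1.97, SE 0.50, edgeR adjusted p = 0.0251). Aldh1a2, toward fBM-MSCs, was at 3.70, 4.84 and 2.51 TPM in fBM-MSCs and 0.73 and 1.01 in vBM-MSCs (log2 fold change 2.11, SE 0.27, edgeR adjusted p = 0.000652), a call lost with a weight per tissue (limma adjusted p = 0.16) and in the 5 bone marrow libraries (edgeR adjusted p = 0.0776). Cyp26b1, which degrades retinoic acid, was at 0.78, 1.05 and 2.14 TPM in fBM-MSCs and 11.6 and 4.80 in vBM-MSCs (log2 fold change -2.62, SE 0.69, edgeR adjusted p = 0.0306). Rara, Notch1, Jag1 and Hes1 were also higher in vBM-MSCs. The 8 hedgehog, retinoid and Notch calls toward vBM-MSCs numbered 1 on the 5 bone marrow libraries, 4 without fBM-MSC replicate 2, against 2 without vBM-MSC replicate 1. Aldh1a1, Cyp26b1, Rara, Notch1 and Hes1 missed the threshold without vBM-MSC replicate 1 (edgeR adjusted p = 0.0552 to 0.322), as did Rara and Notch1 without vBM-MSC replicate 2 (edgeR adjusted p = 0.0529 to 0.061). Cyp26b1 missed the threshold without fBM-MSC replicate 1 (edgeR adjusted p = 0.0702), as did Aldh1a1, Cyp26b1, Rara and Notch1 without fBM-MSC replicate 2 (edgeR adjusted p = 0.0556 to 0.0931). Rara missed the threshold with a weight per tissue (limma adjusted p = 0.134), and Aldh1a1, Cyp26b1, Rara, Notch1 and Hes1 in the 5 bone marrow libraries (edgeR adjusted p = 0.063 to 0.155).

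Imprinted genes, expressed from 1 parental copy, were higher in vBM-MSCs for 7 of 19 and in fBM-MSCs for none, and 4 of the 7 lie in the Dlk1-Dio3 domain of chromosome 12. Dio3 (chr12:110279230-110281097), which inactivates thyroid hormone, was at 0 in the 3 fBM-MSC libraries and at 25.7 and 11.6 TPM in vBM-MSCs, at least 585-fold over the floor of 3 counts (edgeR adjusted p = 0.00212). Its promoter was listed in vBM-MSCs alone, at a fold enrichment of 6.25. Rian was at 9.17, 6.35 and 1.92 TPM in fBM-MSCs and 35 and 24.6 in vBM-MSCs (log2 fold change -2.35, SE 0.45, edgeR adjusted p = 0.00718). Meg3 was at 0.69, 0.52 and 0.27 TPM in fBM-MSCs and 2.36 and 3.75 in vBM-MSCs (log2 fold change -2.58, SE 0.51, edgeR adjusted p = 0.00853), and Dlk1 is given above. Grb10, which restrains insulin and IGF signals, was at 22.7, 30.5 and 31.6 TPM in fBM-MSCs and 75.1 and 70.2 in vBM-MSCs (log2 fold change -1.32, SE 0.19, edgeR adjusted p = 0.00143). Mest was at 0.90, 1.09 and 2.13 TPM in fBM-MSCs and 3.32 and 12 in vBM-MSCs (log2 fold change -2.38, SE 0.47, edgeR adjusted p = 0.00823). Sgce, at 24.9, 33 and 28.2 TPM in fBM-MSCs and 43.8 and 53 in vBM-MSCs (log2 fold change -0.71, SE 0.19, edgeR adjusted p = 0.0305), completed the 7, and Igf2 and H19 were under the filter. The 7 imprinted calls toward vBM-MSCs numbered 3 on the 5 bone marrow libraries or without vBM-MSC replicate 2, against 4 without vBM-MSC replicate 1. Rian and Sgce missed the threshold without vBM-MSC replicate 1 (edgeR adjusted p = 0.0621 to 0.107), as did Mest and Sgce without vBM-MSC replicate 2 (edgeR adjusted p = 0.0744 to 0.0817). Sgce missed the threshold without fBM-MSC replicate 1 (edgeR adjusted p = 0.0697), as did Sgce without fBM-MSC replicate 3 (edgeR adjusted p = 0.0549). Dio3 fell under the count filter without vBM-MSC replicate 1 or without vBM-MSC replicate 2 and was not tested there. Sgce missed the threshold with a weight per tissue (limma adjusted p = 0.141), and Rian, Meg3, Mest and Sgce in the 5 bone marrow libraries (edgeR adjusted p = 0.0734 to 0.105).

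Cholesterol synthesis genes were higher in vBM-MSCs for 8 of 24 and in fBM-MSCs for none. Idi1 was at 54.9, 67.2 and 54.6 TPM in fBM-MSCs and 164 and 133 in vBM-MSCs (log2 fold change -1.31, SE 0.16, edgeR adjusted p = 0.000475). Cyp51 was at 33.5, 36.7 and 47.5 TPM in fBM-MSCs and 79.5 and 85.5 in vBM-MSCs (log2 fold change -1.03, SE 0.14, edgeR adjusted p = 0.000893). Hmgcs1, the HMG-CoA synthase, was at 37.6, 45 and 43.2 TPM in fBM-MSCs and 54.8 and 67.9 in vBM-MSCs (log2 fold change -0.50, SE 0.12, edgeR adjusted p = 0.021). The 8 cholesterol calls toward vBM-MSCs numbered 3 with a weight per tissue or on the 5 bone marrow libraries or without vBM-MSC replicate 1, 4 without fBM-MSC replicate 2, against 5 without vBM-MSC replicate 2. Of 13 acyl-CoA thioesterase genes, 3 were higher in fBM-MSCs, the largest Acot7 (229, 247 and 171 TPM in fBM-MSCs and 114 and 142 in vBM-MSCs, log2 fold change 0.80, SE 0.14, edgeR adjusted p = 0.00362). Hypoxia and glycolysis genes were called 1 time in each direction of 15, Aldoa toward fBM-MSCs and Adm toward vBM-MSCs. That was near the shares over all genes, 5.24% and 7.56%. Adm, the hypoxia-induced peptide adrenomedullin, was at 33.6, 42.1 and 33 TPM in fBM-MSCs and 154 and 193 in vBM-MSCs (log2 fold change -2.21, SE 0.13, edgeR adjusted p = 7.57e-06), without overlap. The count of hypoxia calls toward fBM-MSCs, 1 with all libraries, was 0 on the 5 bone marrow libraries (edgeR, 2 at an unadjusted p under 0.05), 2 without fBM-MSC replicate 1 or vBM-MSC replicate 2 or A-MSC replicate 1 and 0 without vBM-MSC replicate 1 (edgeR, 3 at an unadjusted p under 0.05). The count of hypoxia calls toward vBM-MSCs, 1 with all libraries, was 2 without fBM-MSC replicate 2. The 3 acyl-CoA thioesterase calls toward fBM-MSCs numbered 0 on the 5 bone marrow libraries (edgeR, 5 at an unadjusted p under 0.05). Hmgcs1 and Aldoa missed the threshold without vBM-MSC replicate 1 (edgeR adjusted p = 0.0571 to 0.0645), as did Hmgcs1 without vBM-MSC replicate 2 (edgeR adjusted p = 0.0714). Hmgcs1 missed the threshold with a weight per tissue (limma adjusted p = 0.0736), and Hmgcs1, Acot7 and Aldoa in the 5 bone marrow libraries (edgeR adjusted p = 0.0823 to 0.167).

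Cell cycle genes were called 5 times of 28, 4 toward fBM-MSCs and 1 toward vBM-MSCs, where 5.24% and 7.56% of all genes were. The 4 cell cycle calls toward fBM-MSCs numbered 1 with a weight per tissue or without vBM-MSC replicate 1, against 0 on the 5 bone marrow libraries (edgeR, 4 at an unadjusted p under 0.05). The call toward vBM-MSCs was Cdk1, the kinase of mitotic entry, at 12.6, 16.3 and 12.4 TPM in fBM-MSCs and 23.1 and 18.4 in vBM-MSCs (log2 fold change -0.57, SE 0.15, edgeR adjusted p = 0.0301), and 3 genes were called that way without fBM-MSC replicate 2. The proliferation marker Mki67 was at 0.39, 0.35 and 0.60 TPM in fBM-MSCs and 0.16 and 0.47 in vBM-MSCs (edgeR adjusted p = 0.333). Top2a was at 1.49, 4.65 and 4.21 TPM in fBM-MSCs and 2.95 and 5.04 in vBM-MSCs, and neither was called (edgeR adjusted p = 0.824). Cyclin D1 (Ccnd1) was at 644, 623 and 549.8 TPM in fBM-MSCs and 226 and 302 in vBM-MSCs (log2 fold change 1.25, SE 0.12, edgeR adjusted p = 0.000177). The ribonucleotide reductase subunit Rrm2 was at 239.9, 168.9 and 163 TPM in fBM-MSCs and 98.3 and 92.9 in vBM-MSCs (log2 fold change 1.04, SE 0.19, edgeR adjusted p = 0.00561). Of 14 genes of cyclin-dependent kinase inhibitors and the p53 pathway, 2 were higher in fBM-MSCs and 1 in vBM-MSCs. Among all genes these shares were 5.24% and 7.56%. Cdkn1a (p21), a target of p53, was at 437, 452 and 398 TPM in fBM-MSCs and 844 and 823 in vBM-MSCs (log2 fold change -0.92, SE 0.11, edgeR adjusted p = 0.000434). Cdkn2a, which accumulates with time in culture, was at 97.2, 111 and 109 TPM in fBM-MSCs and 41 and 75.4 in vBM-MSCs (log2 fold change 0.91, SE 0.24, edgeR adjusted p = 0.0295). The groups did not overlap for these 4 genes. Of 23 interferon-stimulated genes, 2 were higher in fBM-MSCs, B2m (4226, 4957 and 6960.0 TPM in fBM-MSCs and 2064 and 3359 in vBM-MSCs, log2 fold change 1.06, SE 0.21, edgeR adjusted p = 0.00902) and Ifit2 (edgeR adjusted p = 0.0422). The 2 kinase inhibitor and p53 calls toward fBM-MSCs numbered 1 on the 5 bone marrow libraries or without fBM-MSC replicate 2 or 3 or vBM-MSC replicate 1. The count of kinase inhibitor and p53 calls toward vBM-MSCs, 1 with all libraries, was 3 without vBM-MSC replicate 2. The 2 interferon-stimulated calls toward fBM-MSCs numbered 1 with a weight per tissue or without fBM-MSC replicate 2 or A-MSC replicate 2 or 3 or P-MSC replicate 1, 2 or 3, 0 on the 5 bone marrow libraries (edgeR, 6 at an unadjusted p under 0.05), against 0 without vBM-MSC replicate 1 (edgeR, 4 at an unadjusted p under 0.05). Cdk1, Cdkn2a, B2m and Ifit2 missed the threshold without vBM-MSC replicate 1 (edgeR adjusted p = 0.0904 to 0.281). Cdk1 and Ifit2 missed the threshold without fBM-MSC replicate 1 (edgeR adjusted p = 0.0642 to 0.0646), as did Cdkn2a and Ifit2 without fBM-MSC replicate 2 (edgeR adjusted p = 0.0694 to 0.105), and Cdk1 and Cdkn2a without fBM-MSC replicate 3 (edgeR adjusted p = 0.0529 to 0.0654). Cdk1 and Ifit2 missed the threshold with a weight per tissue (limma adjusted p = 0.118 to 0.154), and Cdk1, Rrm2, Cdkn2a, B2m and Ifit2 in the 5 bone marrow libraries (edgeR adjusted p = 0.0796 to 0.203).

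The largest differences were taken by rule as the 10 called genes per direction with the highest fold, no overlap and a mean of at least 5 TPM in the higher tissue. Toward vBM-MSCs, after Dio3, Slc1a6 (chr10:78780496-78814825), a glutamate transporter best known from Purkinje neurons, was at 0.40, 0.20 and 0.62 TPM in fBM-MSCs and 175 and 99 in vBM-MSCs (log2 fold change -8.35, SE 0.41, edgeR adjusted p = 3.06e-06). Its promoter enrichment was 3.68 in fBM-MSCs, under the threshold, and 9.57 in vBM-MSCs. Bst1 (CD157) was at 0, 0.13 and 0 TPM in fBM-MSCs and 20.7 and 3.85 in vBM-MSCs (log2 fold change -8.03, SE 1.65, edgeR adjusted p = 0.0101). The matrix protein Abi3bp was at 0.20, 0.05 and 0.04 TPM in fBM-MSCs and 24.4 and 5.07 in vBM-MSCs (log2 fold change -7.65, SE 1.12, edgeR adjusted p = 0.00164). The clearance receptor Npr3 for natriuretic peptides was at 0.35, 0.15 and 0.05 TPM in fBM-MSCs and 10.7 and 5.15 in vBM-MSCs (log2 fold change -5.60, SE 0.61, edgeR adjusted p = 0.000267). C4bp, a complement inhibitor made mainly by liver, was at 1.27, 0 and 0 TPM in fBM-MSCs and 42.8 and 11.8 in vBM-MSCs (log2 fold change -6.28, SE 1.34, edgeR adjusted p = 0.0121), with a promoter region in vBM-MSCs alone (fold enrichment 9.57). Nkain4 was at 6.34, 2.46 and 0 TPM in fBM-MSCs and 565 and 193 in vBM-MSCs (edgeR adjusted p = 0.000529). Gm15698, an unnamed gene model, was at 2.47, 3.78 and 0 TPM in fBM-MSCs and 384 and 169.9 in vBM-MSCs (edgeR adjusted p = 0.000525). The connexin Gjb2, at 0.48, 0.15 and 0 TPM in fBM-MSCs and 5.47 and 29.3 in vBM-MSCs (edgeR adjusted p = 0.0058), completed the 10 with Hoxb5os. Abi3bp had the higher promoter enrichment in fBM-MSCs (10.7 against 8.09), opposite to its transcript. The promoters of Npr3 (6.25 and 9.57) and Nkain4 (5.52 and 6.25) were listed in both tissues, and those of Bst1, Gjb2 and Hoxb5os in neither at the threshold. C4bp missed the threshold without vBM-MSC replicate 1 (edgeR adjusted p = 0.128), as did Gjb2 without vBM-MSC replicate 2 (edgeR adjusted p = 0.0573). Bst1 fell under the count filter without vBM-MSC replicate 1 or without vBM-MSC replicate 2 and was not tested there. Bst1, Abi3bp, C4bp and Gjb2 missed the threshold with a weight per tissue (limma adjusted p = 0.0743 to 0.189), and C4bp in the 5 bone marrow libraries (edgeR adjusted p = 0.083).

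Toward fBM-MSCs, the gelatinase Mmp9 was at 5.51, 5.64 and 8.87 TPM in fBM-MSCs and 0.05 and 0 in vBM-MSCs, a count ratio of 315, with a 95% counting interval of 108 to 1532 (edgeR adjusted p = 0.0405). Atp6v0d2, a proton pump subunit of osteoclasts, was at 20.9, 23 and 15 TPM in fBM-MSCs and 0.11 and 0.83 in vBM-MSCs (log2 fold change 5.43, SE 0.71, edgeR adjusted p = 0.00355), and its promoter enrichment was 29.4 in fBM-MSCs and 11.4 in vBM-MSCs. C5ar1, the receptor of complement C5a, was at 9.98, 9.63 and 11.7 TPM in fBM-MSCs and 0.07 and 0.73 in vBM-MSCs (log2 fold change 4.78, SE 1.33, edgeR adjusted p = 0.038), with a promoter region in fBM-MSCs alone (fold enrichment 14.3). The choline transporter Slc5a7 was at 0.97, 13.9 and 2.63 TPM in fBM-MSCs and 0 and 0.09 in vBM-MSCs (edgeR adjusted p = 0.0292). The cytokine receptor chain Il2rg was at 2.15, 17.3 and 4.71 TPM in fBM-MSCs and 0.17 and 0.20 in vBM-MSCs (edgeR adjusted p = 0.00444). Both were highest in fBM-MSC replicate 2. Rpl39l, a paralogue of Rpl39 whose count can share reads with it, was at 28.5, 110.2 and 76.2 TPM in fBM-MSCs and 2.34 and 1.80 in vBM-MSCs (edgeR adjusted p = 0.00687). The gene model 1700012B09Rik, at 119, 47 and 41.4 TPM in fBM-MSCs and 0 and 2.04 in vBM-MSCs (edgeR adjusted p = 0.00182), completed the 10 with Shox2, Bmp3 and Dkk1. The Dkk1 promoter was listed in vBM-MSCs alone (fold enrichment 6.62), opposite to its transcript. That of 1700012B09Rik had 7.73 in fBM-MSCs and 5.15, under the threshold, in vBM-MSCs, and those of Mmp9, Bmp3, Rpl39l and Slc5a7 were listed in neither at the threshold. Mmp9, C5ar1 and Slc5a7 missed the threshold without vBM-MSC replicate 1 (edgeR adjusted p = 0.143 to 0.183), as did Mmp9 and Slc5a7 without vBM-MSC replicate 2 (edgeR adjusted p = 0.0516 to 0.133). Mmp9 and C5ar1 missed the threshold without fBM-MSC replicate 1 (edgeR adjusted p = 0.0529 to 0.0605), as did Mmp9, C5ar1 and Slc5a7 without fBM-MSC replicate 2 (edgeR adjusted p = 0.0684 to 0.0846), and Mmp9 and C5ar1 without fBM-MSC replicate 3 (edgeR adjusted p = 0.0575 to 0.0593). Mmp9, C5ar1, Slc5a7, Il2rg, Rpl39l and 1700012B09Rik missed the threshold with a weight per tissue (limma adjusted p = 0.103 to 0.454), and Slc5a7 and Il2rg in the 5 bone marrow libraries (edgeR adjusted p = 0.0553 to 0.0765). With a weight per tissue Shox2, Bmp3 and Dkk1 were also lost, and Atp6v0d2 was the 1 of the 10 that passed (limma adjusted p = 0.00741).

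Markers of other cell types were read beside these groups. Of 11 tested macrophage and osteoclast genes, 3 were higher in fBM-MSCs: Mmp9, Atp6v0d2 and Cd68 (13.1, 18.5 and 12.3 TPM in fBM-MSCs and 0.87 and 2.72 in vBM-MSCs, log2 fold change 3.06, SE 0.50, edgeR adjusted p = 0.00305). The 3 macrophage and osteoclast calls toward fBM-MSCs numbered 1 with a weight per tissue. The defining macrophage genes Adgre1, Itgam, C1qa and C1qb were at 0 in all 5 libraries and Ptprc at 0.1 TPM at most, and the summed level of the 26 genes was 277, 293 and 411 TPM in fBM-MSCs and 178 and 325 TPM in vBM-MSCs. Endothelial Cdh5 was at 0 or 0.01 TPM and Pecam1 at 0.31 TPM at most, whereas Flt1 was at 0, 0.10 and 0 TPM in fBM-MSCs and 2.15 and 2.64 in vBM-MSCs (log2 fold change -5.95, SE 0.61, edgeR adjusted p = 0.000203). The 14 endothelial genes summed to 4.65 to 9.24 TPM in fBM-MSCs and 8.66 and 13.7 TPM in vBM-MSCs.

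Of skeletal muscle, Myod1, Myog and Pax7 were at 0, and Acta1, skeletal actin, was at 19.3, 11.7 and 8.54 TPM in fBM-MSCs and 495 and 54.5 in vBM-MSCs (log2 fold change -4.44, SE 0.69, edgeR adjusted p = 0.00224), nearly all of that list's summed level. Stmn2, a neuronal stathmin, was at 136, 221 and 82.5 TPM in fBM-MSCs and 5.90 and 14.8 in vBM-MSCs (log2 fold change 3.88, SE 0.79, edgeR adjusted p = 0.00986). It was the 1 called of 3 tested among 12 neural and Schwann cell genes, of which 6 were at 0 in all 5 libraries. Their summed level was 209, 336 and 218 TPM in fBM-MSCs and 68.7 and 103 TPM in vBM-MSCs. Stmn2 missed the threshold without vBM-MSC replicate 1 (edgeR adjusted p = 0.0835). Cd68 missed the threshold with a weight per tissue (limma adjusted p = 0.0532), and Flt1 and Acta1 in the 5 bone marrow libraries (edgeR adjusted p = 0.0553 to 0.0563). None of 1 lymphoid or granulocyte, 2 erythroid, 8 epithelial or mesothelial and 4 sex-linked genes tested was called. The part of other cells in any result was not tested beyond these levels.

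Across chromosomes 1 to 19, at −log10 q ≥ 7, fBM-MSCs had 56769 accessible regions, of which 37692 (66.4%) touched a vBM-MSC region, and vBM-MSCs had 50763, of which 37504 (73.9%) touched an fBM-MSC region. 10519 fBM-MSC and 5831 vBM-MSC regions had nothing at any strength in the other list. Of these, 2.03% and 4.48% lay at a promoter, against 28.7% of the shared regions of either tissue. Their median fold enrichment was 6.62 and 6.25, where shared regions had 10.7 and 10.3.

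Promoter accessibility was set beside expression. Of 12021 tested genes with a start on these chromosomes, 1.84% had a region within 1 kb in fBM-MSCs only and 3.71% in vBM-MSCs only. Here only means that the other tissue had no summit at the threshold, so weaker summits there are allowed. Among all 630 genes called higher in fBM-MSCs the shares were 4.13% and 3.65%, and among all 899 called higher in vBM-MSCs 1.89% and 7.23%. Among 332 genes at least 2-fold higher in fBM-MSCs the shares were 6.93% and 4.52%. Among 445 genes at least 2-fold higher in vBM-MSCs they were 3.37% and 13.5%. Most of the genes with such a 2-fold difference had a region in both tissues, 69.9% and 62.7% of them.

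Distal regions differed in their sequence letters. Within 100 bases of the summit, an AP-1 match stood in 41.3% of 10305 regions listed in fBM-MSCs alone (95% exact binomial interval 40.3 to 42.3) and in 10.7% of 5570 listed in vBM-MSCs alone (9.88 to 11.5), where shared regions had 36.1% and 34.7%. A RUNX match stood in 35.2% and 19.6% (shared 27.8% and 26.8%), and a TEAD match in 15.5% and 29.6% (shared 22.2% and 23%). GATA matches (AGATAA or TGATAA, 13.2% and 15.3%) and SOX matches (ACAAAG, 16.7% and 19.2%) were closer. The share of G and C was 46.8% and 45.7% in the regions alone and 49.1% and 48.8% in the shared ones. The intervals cover counting error over regions only, with 1 pooled list per tissue and no replicate test.

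Set beside the transcripts, AP-1 letters were rarer in the regions of vBM-MSCs alone, while Fos, Fosb and Fosl1 mRNA was higher in vBM-MSCs. RUNX letters were more frequent in the regions of fBM-MSCs alone. Runx2 mRNA was called higher in fBM-MSCs, and Runx1 and Runx3 were not called (edgeR adjusted p = 0.933 and 0.225). The Runx2 call was lost with a weight per tissue (limma adjusted p = 0.0819) and in the 5 bone marrow libraries (edgeR adjusted p = 0.132). No link between a motif and a factor was tested. At −log10 q ≥ 15, an alternative added after seeing the data, the shares were 45.6% and 8.55% for AP-1, 41.2% and 20.8% for RUNX, and 15.3% and 32.1% for TEAD.

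**Figure D5:**
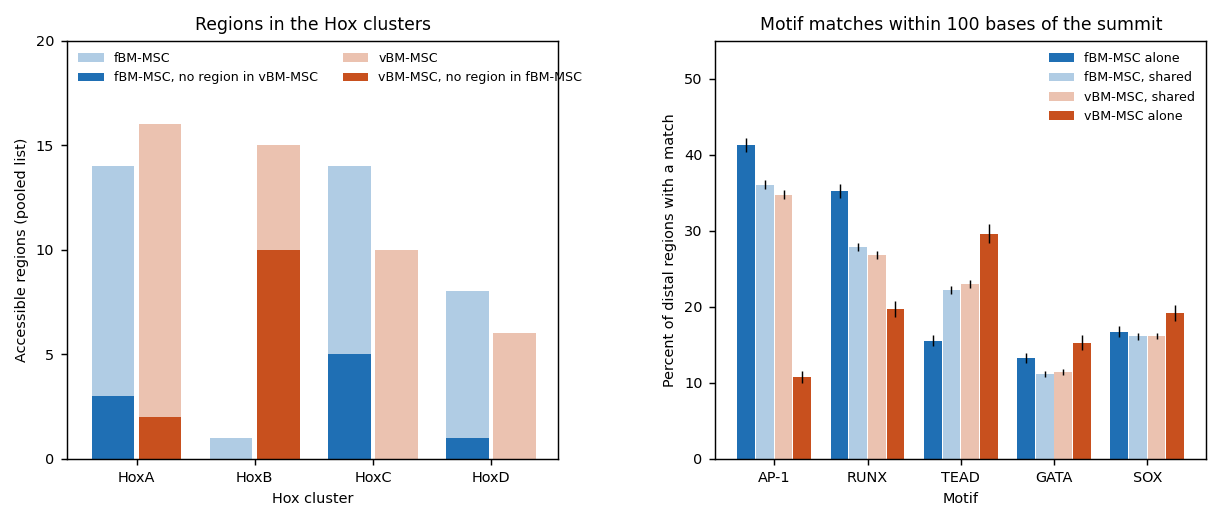
Left, number of accessible regions (y axis) of the pooled fBM-MSC and vBM-MSC lists in each Hox cluster (x axis), with the regions that have no counterpart of any strength in full colour. Right, percent of distal regions (y axis) with a motif match within 100 bases of the summit (x axis, motif), for regions listed in 1 tissue alone or shared, with 95% exact binomial intervals. HoxB holds 1 fBM-MSC and 15 vBM-MSC regions, and AP-1 matches stand in 41.3% of fBM-MSC and 10.7% of vBM-MSC regions listed alone.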

How the data were processed

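RNA-seq libraries were made by Smart-seq2, which is unstranded and counts PCR reads without molecular identifiers. The authors aligned paired reads to mm10 with RSEM and STAR and deposited RSEM expected counts and TPM per gene. Expected counts were rounded, filtered (1 CPM in at least 2 of 11 libraries) and tested with the edgeR 4.0.16 quasi-likelihood test (R 4.3.3; TMM factors 0.913 to 1.11) in 1 model of 4 tissues, with Benjamini-Hochberg adjustment. Alternatives were DESeq2 1.42.0, limma 3.58.1 (voom with a weight per tissue, and trend on log2(TPM + 1)), RLE scaling, no filter or a filter on the bone marrow libraries, the 5 bone marrow libraries alone, a replicate block and each library left out in turn.

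The authors trimmed ATAC-seq reads (TrimGalore), mapped them with Bowtie, removed duplicates (Picard) and blacklisted regions, shifted reads for Tn5 insertion and called peaks with MACS2. The deposited lists pool all samples of a tissue and give −log10 p and q values and the ratio (fold enrichment) at each summit. Regions at −log10 q ≥ 7 were used, and 1 shared base counted as shared. Coordinates and sequences are from RefSeq on GRCm38.p6, the assembly of mm10.

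The study collected the tissues from 3 mice and calls the replicates biological, but the labels tie no library to a mouse. The comparison and the 37 gene lists were chosen with earlier results of these data known. Named genes were the 10 largest per direction (called, no overlap, mean of at least 5 TPM in the higher tissue), up to 4 called members and the first 2 members of a list, the limb, axial, Hox and osteoblast genes, and others chosen after their values were seen. A fold against a group at 0 was set against a floor of 3 counts over the group. Floors and 95% intervals cover counting error only. Some genes and sequences are not reported here, and the counts over lists include all tested members.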

Additional observations from a re-analysis of the deposited data

How the results depend on the processing

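The count of 1601 called genes moved by over 1.5 times in 3 settings. It was 305 (99 higher in fBM-MSCs and 206 in vBM-MSCs) on the 5 bone marrow libraries alone, 841 (284 and 557) with a weight per tissue in limma, and 610 (206 and 404) without vBM-MSC replicate 1. DESeq2 called 1006 genes higher in fBM-MSCs against 655 in edgeR. With each library left out in turn, the count lay between 610 and 1961 in all, 206 and 933 toward fBM-MSCs (393 without fBM-MSC replicate 2), and 404 and 1028 toward vBM-MSCs. Of 549 listed genes that were tested, 52 were called higher in fBM-MSCs and 112 in vBM-MSCs. These were 11 and 46 on the 5 bone marrow libraries, 27 toward fBM-MSCs with a weight per tissue, and 20 (without vBM-MSC replicate 1) to 74 toward fBM-MSCs and 75 to 121 toward vBM-MSCs with a library left out (33 toward fBM-MSCs without fBM-MSC replicate 2). The bone marrow fit rests on fewer samples. The biological coefficient of variation was 33.3% in fBM-MSCs and 36.6% in vBM-MSCs, and the common value over all 4 tissues was 27.8%. The causes of these moves were not tested. Of 221 tested genes that the text names, 153 were called, and none reversed under the alternatives run. The bone marrow fit lost 89 of these calls, the weight per tissue 48 and leaving out vBM-MSC replicate 1 55. The tissues came from the same mice, but no source says that replicate numbers mark the mouse, and the data do not settle it. Libraries of fBM-MSCs and vBM-MSCs with the same number had an r of deviations of 0.0886, a value that 2 vBM-MSC libraries leave with 1 free comparison. With the replicate block 1326 genes were called, 527 toward fBM-MSCs and 799 toward vBM-MSCs. With it 19 of the named genes lost their call, among them Cdk1, and 5 list counts fell by over 1.5 times: toward vBM-MSCs Hox 5 to 8 (4 in place of 8), axial (3 in place of 5), adipogenic (2 in place of 4) and cell cycle (0 in place of 1, with 2 at an unadjusted p under 0.05), and toward fBM-MSCs kinase inhibitors (1 in place of 2).

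Without a threshold on q, fBM-MSC regions numbered 64889 shared and 34448 not shared, and vBM-MSC regions 64274 and 24107. At −log10 q ≥ 15 they were 20514 and 9922, and 20416 and 7403, against 37692 and 19077, and 37504 and 13259. A required overlap of 0.5 of the shorter region moved these counts by less than 1.5 times. Depth limits the genes under 1 TPM, where a few counts decide whether vBM-MSCs are listed at 0.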
